A study of Rattus norvegicus with 12 samples.

Results

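Fibroblasts that overexpressed the histone deacetylase HDAC1 without added cytokine were compared with fibroblasts that received the cytokine TGFB1 without HDAC1, by poly(A) RNA sequencing of NRK-49F cells, a fibroblast line from normal rat kidney. The libraries were chosen by their titles, which gave 6 of the 12 libraries of the series, 3 for each state. HDAC1 cells carried a plasmid for human HDAC1 with a Flag tag and were kept for 24 hours in medium with 0.5% FBS, which served as the vehicle. TGFB1 cells carried the empty vector pcDNA3.1 and were kept for 24 hours in the same medium with 2 ng/ml TGFB1. A further 3 libraries came from cells with the empty vector and vehicle (EV vehicle cells), and their levels are given beside most results. All groups were of this 1 cell line, and nothing in the labels tells whether replicates came from separate cultures. A p-value here therefore reads the spread between libraries, which may be technical. Sample titles set the groups, since the labelled treatment counts up from sample to sample and the design text speaks of every culture as TGFB1-treated. The comparison asked which programs set the deacetylase state apart from the cytokine state and which reached equal levels in both.

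TGFB1 binds a pair of serine/threonine kinase receptors, which phosphorylate SMAD proteins that then enter the nucleus and act on target genes with other transcription factors. In kidney fibroblasts this signal is best known for turning resting cells into myofibroblasts, contractile cells that lay down collagen and fibronectin in fibrosis. HDAC1 removes acetyl groups from histone tails as the catalytic subunit of the SIN3, NuRD and CoREST complexes, a change that is mostly linked to repressed genes, and it is also known as a gene needed by dividing cells.

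Library totals were 24662270 to 36652084 counts for HDAC1 cells, 20844186 to 23619883 for TGFB1 cells and 18397093 to 27119357 for EV vehicle cells, and 14601 genes were tested. The table counts rat genes, so reads from the human plasmid could be counted only under rat Hdac1 and its near-identical copy Hdac1l, and the split between both is uncertain. Hdac1 had 428, 375 and 460.4 CPM in HDAC1 cells, against 259, 250.2 and 290.4 CPM in TGFB1 cells and 212, 205 and 212 CPM in EV vehicle cells. Hdac1 had a log2 fold change of 0.66 ± 0.08 (SE, adjusted p = 1.13e-06). TGFB1 cells were also above EV vehicle cells for Hdac1, by 0.35 on the log2 scale (adjusted p = 0.00123). Hdac1l had 1297, 852 and 1367 CPM in HDAC1 cells, against 8.09, 8.65 and 11.2 CPM in TGFB1 cells and 0.53, 15.1 and 9.23 CPM in EV vehicle cells, so the HDAC1 libraries were as labelled, and the EV vehicle libraries were widely spread. Along the first principal component of the 9 libraries, which held 56.24% of the variance, HDAC1 cells lay at -19.4 to -16.3, TGFB1 cells at 47.6 to 52.8 and EV vehicle cells at -42.9 to -24.2. The mitochondrial genome gave 2.23 ± 0.180% of the counts in HDAC1 cells and 1.83 ± 0.0233% in TGFB1 cells (SD, n = 3 each; exact two-sided permutation p = 0.1, the smallest that 3 against 3 allows). Of the defining fibroblast markers, Col1a1, Col1a2, Col3a1 and Vim were abundant in all groups, while Dcn was nearly absent, with 66 counts in the 3 HDAC1 libraries, 35 in the TGFB1 libraries and 52 in the EV vehicle libraries, and Lum, Thy1 and Fap were not analysed here.

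Replicate 1 of the HDAC1 cells stood apart. It held 72 genes with at least 30 counts at over 5 times the CPM of each of the other 11 libraries, and the same rule found 0 genes in each of those. They made up 0.0653% of its counts. Of these genes 58 were too low elsewhere to be tested, among them the liver genes Alb (1038 counts there and at most 2 in any other library), Fgb, Cps1 and Cyp2e1 and the keratin Krt5. The other 14, including the immediate early genes Fos, Fosb, Nr4a1, Nr4a2 and Egr3, were tested, and edgeR called 0 of them in the direct contrast (7 higher at an unadjusted p under 0.05, and 3 called by DESeq2). The rule finds only genes in excess in 1 library. EV vehicle replicate 1 lay away from its group in another way. On the second principal component (13.68% of the variance) it was at -41.1, against -2.12 and 2.42 for EV vehicle replicates 2 and 3. Its heart markers summed to 71.2 CPM, against 388 and 409 CPM in those. Many counts that rest on a single library are given below with and without it, but not every such count was marked.

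In the direct test, 6011 genes differed between HDAC1 cells and TGFB1 cells (41.2%), of which 2875 were higher (19.7%) and 3136 lower (21.5%) in HDAC1 cells. Genes were called at an adjusted p under 0.05 in the quasi-likelihood test of edgeR, with Benjamini-Hochberg adjustment over all genes tested, and each log2 fold change is HDAC1 cells over TGFB1 cells. A difference of at least 2-fold was called for 1104 genes (7.56%), 644 of them higher (4.41%) and 460 lower (3.15%). A gene was said to be at an equal level where the 95% interval of its log2 fold change lay within 0.32 of 0 on the log2 scale. This held for 3830 genes (26.2%), of which 198 (1.36%) were also called because a small difference was measured closely. For 4958 genes (34.0%) the data gave neither a call nor an equal level. Against a difference of 1.2-fold in place of 0, 2864 genes were called, 1518 of them higher and 1346 lower. The 3 HDAC1 libraries did not overlap the 3 TGFB1 libraries for 7346 genes (50.3%). In bulk RNA, fewer cells of a kind and less RNA per cell cannot be told apart.

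**Figure D1:**
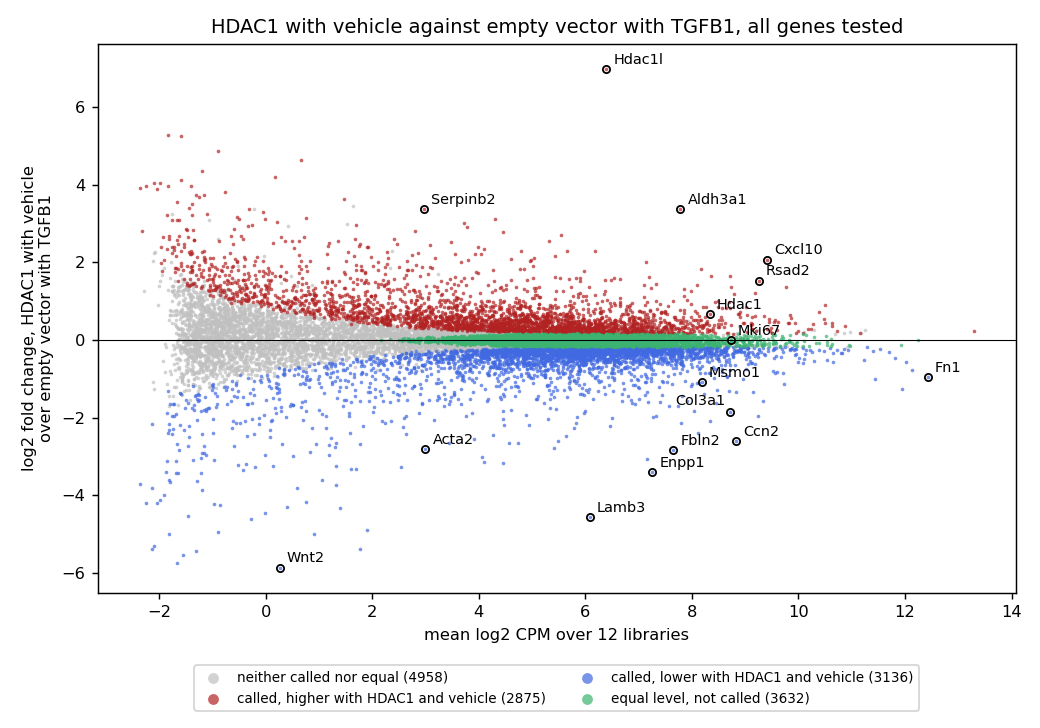
Log2 fold change of HDAC1 cells over TGFB1 cells (vertical axis) against the mean log2 CPM over 12 libraries (horizontal axis) for the 14601 genes tested, 1 point per gene. Points are coloured by call: 2875 genes were higher and 3136 lower in HDAC1 cells, and circled genes are named in the text.

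The difference has 2 sides, and both were read against the same 3 EV vehicle libraries. HDAC1 against EV vehicle cells gave 2038 called genes (14.0%), 969 higher (6.64%) and 1069 lower (7.32%), and TGFB1 against EV vehicle cells gave 7429 (50.9%), 3780 higher (25.9%) and 3649 lower (25.0%). The count for HDAC1 was 1144 without HDAC1 replicate 1 and 1239 without EV vehicle replicate 1. Because these comparisons share libraries, their values are set side by side for each gene and no overlap or correlation between them is given. Over all genes tested the median log2 fold change was -0.01 in the direct contrast, -0.01 for HDAC1 cells against EV vehicle cells and 0.01 for TGFB1 cells against EV vehicle cells. The gene lists below had been chosen with earlier results of these data known, so each list is described by its counts and its median beside those of all genes. In the direct contrast, every list count stands beside 19.7% of all genes higher, 21.5% lower and 26.2% at equal levels.

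Genes lower in HDAC1 cells were most frequent among the TGF-beta feedback inhibitors (11 of 14 tested) and the canonical TGF-beta targets (20 of 26), against 21.5% of all genes. Cholesterol synthesis (20 of 29) and DNA replication (25 of 41) also had more lower members than all genes did. Higher members were most frequent among the chemokines (11 of 16) and the interferon-stimulated genes (34 of 50), against 19.7% of all genes. Equal levels, with 26.2% of all genes, were most frequent among the nuclear genes of oxidative phosphorylation (32 of 38) and the mitosis genes (25 of 39).

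**Figure D2:**
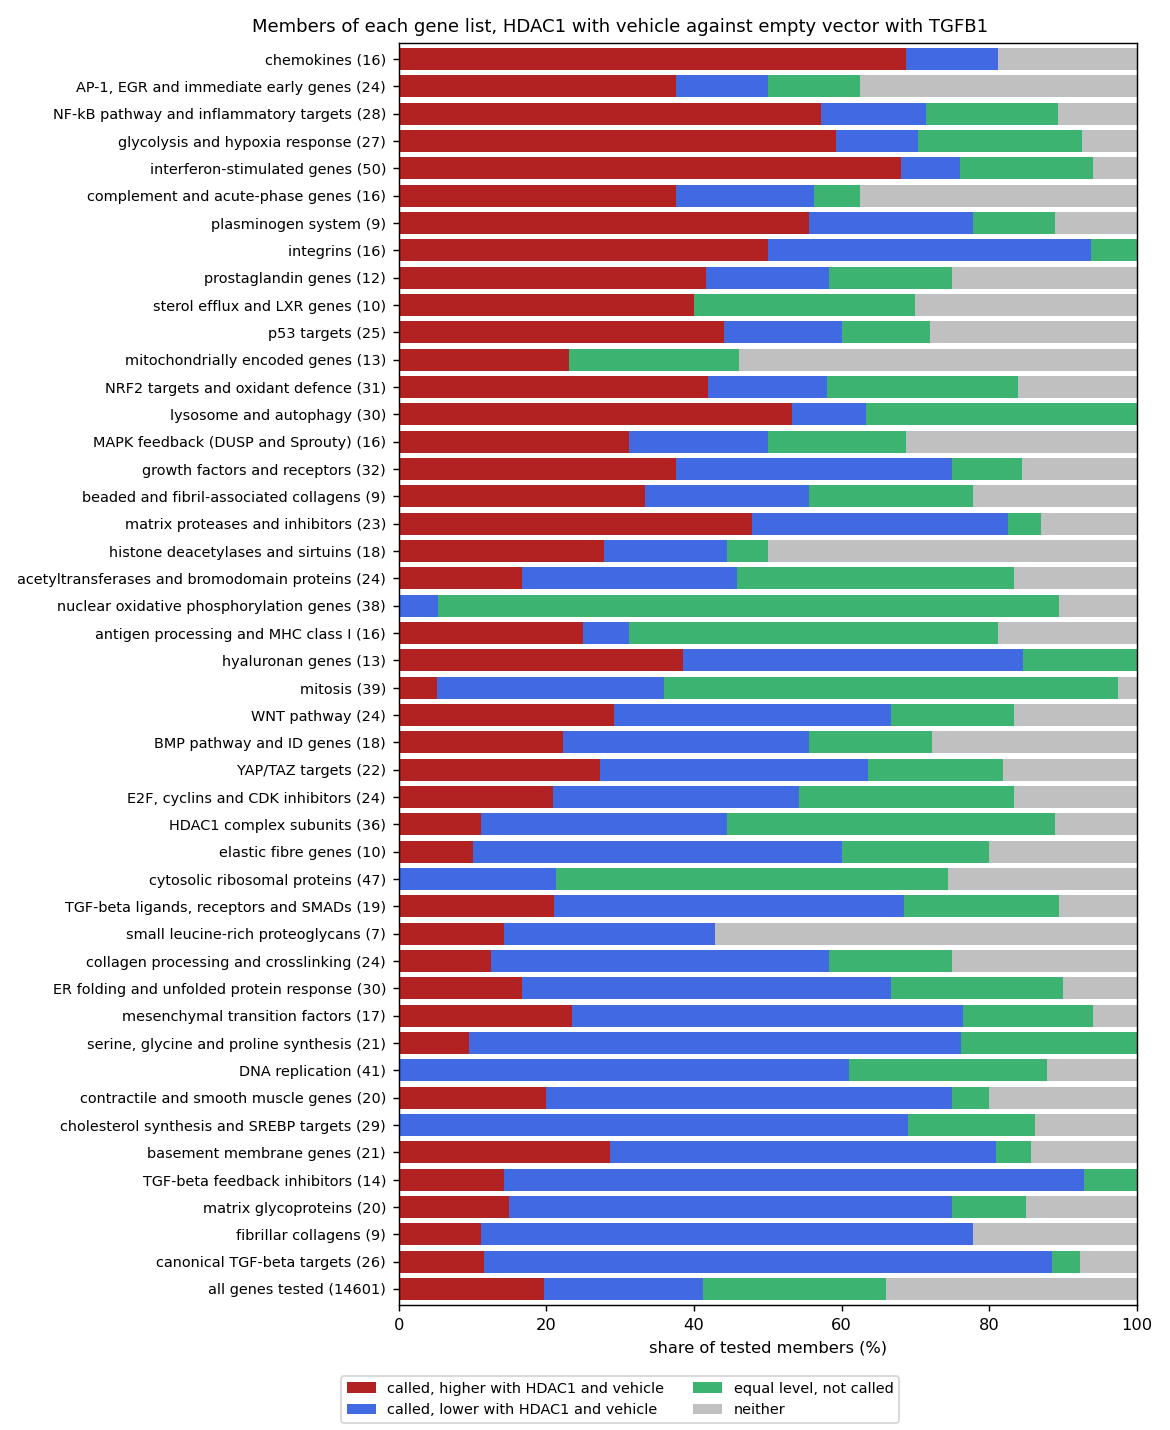
Share of the tested members of each list (number in brackets) that were called higher, called lower, at an equal level without a call, or neither, for HDAC1 cells against TGFB1 cells. Lists are ordered by their median log2 fold change, and the bottom bar gives all 14601 genes.

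**Figure D3:**
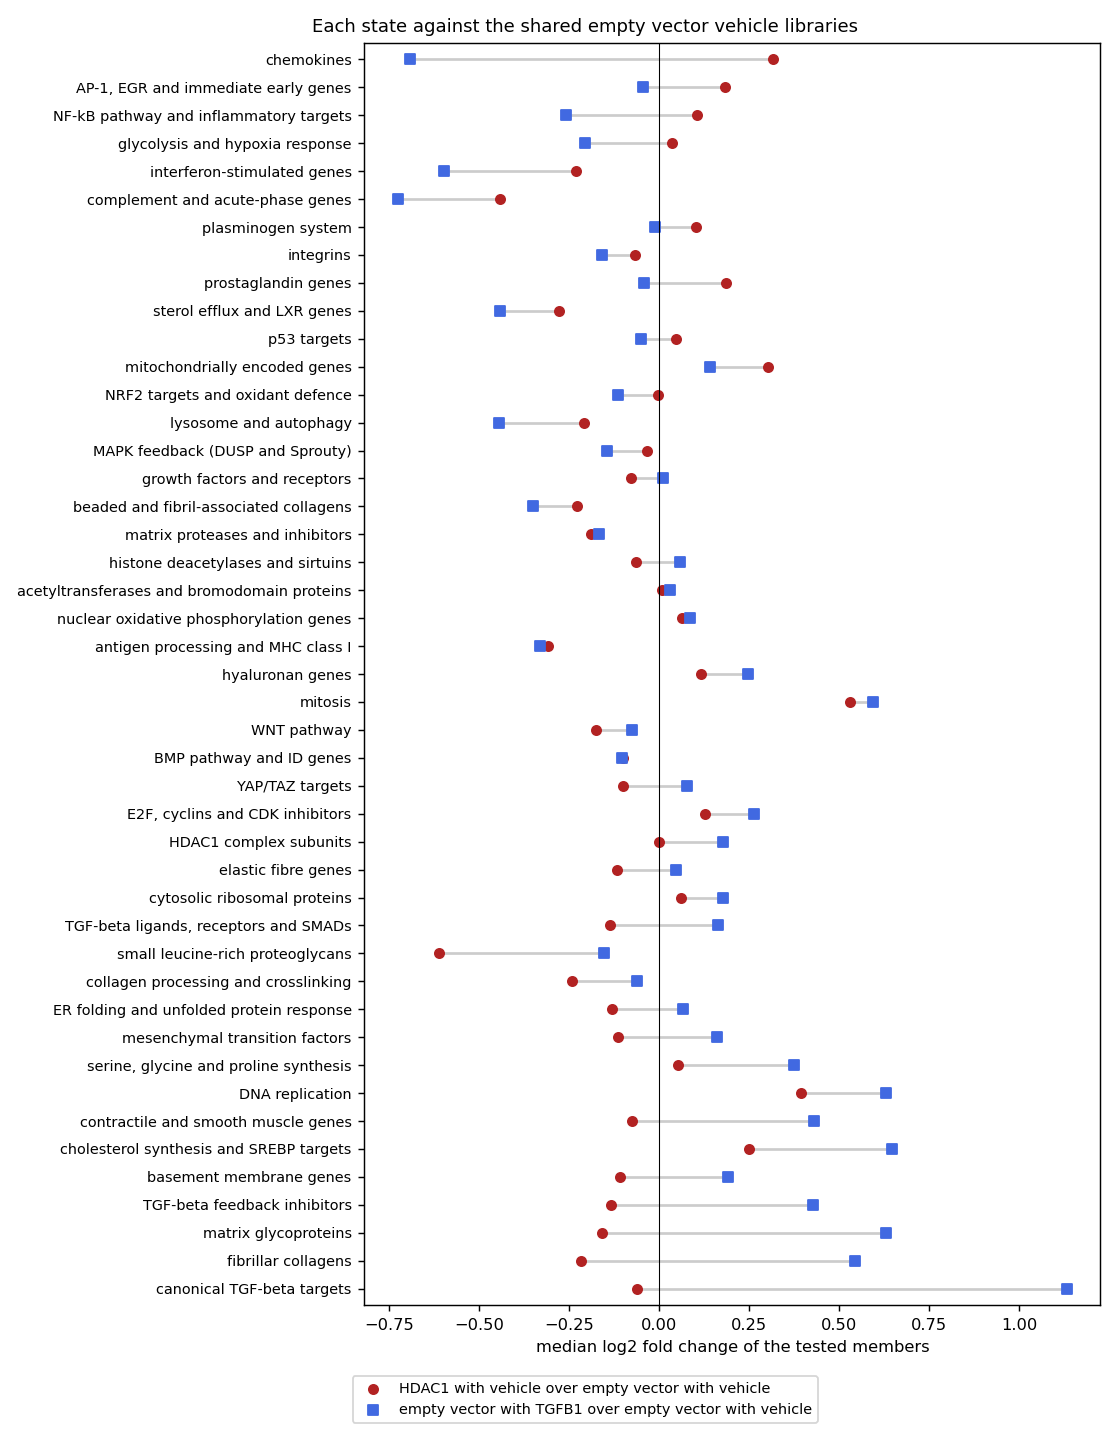
Median log2 fold change of the tested members of each list for HDAC1 cells (circles) and TGFB1 cells (squares), both over the same 3 EV vehicle libraries, in the order used for the shares of called members. The grey line joins the 2 medians of a list: it is long for canonical TGF-beta targets (-0.06 and 1.13) and chemokines (0.32 and -0.69) and short for mitosis genes (0.53 and 0.59).

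Promoters of 5 genes are shown, each a called member of a list described here. Each is the member with the smallest adjusted p that has an entry in the RefSeq promoter table of the build GRCr8, and each run gives the 250 bases before the start of the gene, 5′ to 3′ on the strand of the gene. Capitals mark matches on either strand to the motifs searched: 2 forms of the E2F site (TTGGCGC and TTCCCGC), the CHR (TTTGAA), the CCAAT box (CCAAT), a SMAD element (CAGACA), the AP-1 site (TGANTCA) and the end of the interferon response element (GAAACT). Pmepa1 and Lamb3 are from the TGF-beta targets and basement membrane genes, Cxcl10 from the interferon-stimulated genes, Msmo1 from cholesterol synthesis and Kif11 from mitosis. Kif11 had the lowest log2 fold change of the mitosis genes (-0.53), most of which were at equal levels.
Pmepa1, chr3:182478650-182478899, minus strand: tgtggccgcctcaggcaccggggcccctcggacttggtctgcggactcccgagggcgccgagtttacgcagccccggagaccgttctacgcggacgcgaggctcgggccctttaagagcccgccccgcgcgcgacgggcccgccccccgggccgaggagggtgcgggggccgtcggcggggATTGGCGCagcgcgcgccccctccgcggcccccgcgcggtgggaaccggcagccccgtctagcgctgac
Lamb3, chr13:107362303-107362552, plus strand: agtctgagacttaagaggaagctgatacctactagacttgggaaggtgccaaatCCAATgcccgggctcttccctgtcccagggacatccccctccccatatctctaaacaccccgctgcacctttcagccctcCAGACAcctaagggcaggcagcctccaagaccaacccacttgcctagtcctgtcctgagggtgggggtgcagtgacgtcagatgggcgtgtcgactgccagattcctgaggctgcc
Cxcl10, chr14:15988816-15989065, plus strand: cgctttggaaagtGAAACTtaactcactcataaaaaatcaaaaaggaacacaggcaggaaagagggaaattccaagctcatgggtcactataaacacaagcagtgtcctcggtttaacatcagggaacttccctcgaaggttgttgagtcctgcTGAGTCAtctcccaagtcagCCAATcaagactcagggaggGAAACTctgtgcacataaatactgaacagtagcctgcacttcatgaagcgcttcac
Msmo1, chr16:29746863-29747112, plus strand: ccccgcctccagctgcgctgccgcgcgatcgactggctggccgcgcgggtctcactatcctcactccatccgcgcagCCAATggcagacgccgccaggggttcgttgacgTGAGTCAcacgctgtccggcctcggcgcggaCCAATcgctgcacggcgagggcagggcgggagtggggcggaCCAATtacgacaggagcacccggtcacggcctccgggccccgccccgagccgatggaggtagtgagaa
Kif11, chr1:244536617-244536866, plus strand: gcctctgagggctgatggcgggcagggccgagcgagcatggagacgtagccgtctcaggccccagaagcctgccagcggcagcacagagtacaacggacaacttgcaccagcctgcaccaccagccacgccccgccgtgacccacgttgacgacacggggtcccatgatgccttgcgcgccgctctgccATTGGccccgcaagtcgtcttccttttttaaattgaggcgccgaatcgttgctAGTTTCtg
The Cxcl10 promoter held the interferon element end at 237 and 56 bases before the start and an AP-1 site at 96. The Msmo1 promoter held 3 CCAAT boxes, at 173, 109 and 68 bases before the start, and Kif11 held 1 in reverse at 61. Lamb3 held the SMAD element at 116 bases before the start, and Pmepa1 held an E2F site at 68 that overlaps a reversed CCAAT box at 69.

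Over the lists, the letters GAAACT were found in 26 of 39 promoters of interferon-stimulated genes (66.7%), against 14.1% of all 27457 promoters and 11.6% of the 10110 promoters of genes tested. CCAAT was found in 24 of 34 mitosis promoters (70.6%) and 15 of 19 cholesterol synthesis promoters (78.9%), against 34.3% of all promoters and 35.9% of those of genes tested. TTTGAA was found in 14 of 34 mitosis promoters (41.2%), against 16.0% of all and 10.3% of genes tested. The letters TTCCCGC were in 8 of 36 DNA replication promoters (22.2%), against 3.58% of all and 6.68% of genes tested. The AP-1 letters were in 4 of 13 chemokine promoters (30.8%) and 7 of 24 promoters of NF-kB and inflammatory targets (29.2%), against 6.36% of all and 4.49% of genes tested. SMAD letters were in 3 of 20 promoters of canonical TGF-beta targets and 5 of 13 chemokine promoters (38.5%), against 16.9% of all and 13.1% of genes tested. Among genes at least 2-fold higher in HDAC1 cells, GAAACT was in 77 of 355 promoters (21.7%), the AP-1 letters in 42 (11.8%) and the SMAD letters in 60 (16.9%). Among genes at least 2-fold lower, these shares were 9.43%, 8.68% and 22.3% of 265 promoters. Among genes at equal levels they were 11.6%, 3.87% and 11.8% of 3151. A match describes the letters in this window and is not a binding site.

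Canonical TGF-beta targets had the lowest median of all lists and lay near the EV vehicle level in HDAC1 cells. Of 26 tested, 20 were lower and 3 higher, and 17 were at least 2-fold lower. The log2 fold changes had a median of -1.22. The median of the list was -0.06 for HDAC1 cells and 1.13 for TGFB1 cells over EV vehicle cells. Ccn2, a matricellular growth factor, had 202, 181 and 184 CPM in HDAC1 cells, against 1198, 985 and 1266 CPM in TGFB1 cells and 302, 327 and 235 CPM in EV vehicle cells. Ccn2 differed by -2.61 ± 0.11 (SE) on the log2 scale (adjusted p = 5.5e-12). No HDAC1 library of Ccn2 reached a TGFB1 library, and the HDAC1 libraries also lay below the EV vehicle libraries. Lmcd1, a LIM domain cofactor, had 0.555, 0.59 and 0.779 CPM in HDAC1 cells, against 19.2, 16.1 and 21.3 CPM in TGFB1 cells and 0.442, 1.01 and 0.894 CPM in EV vehicle cells (log2 fold change -4.89 ± 0.19 (SE), adjusted p = 2.02e-14), so TGFB1 cells stood alone and both other groups were near 1 CPM or below. Bhlhe40, a helix-loop-helix repressor, differed less, by -1.13 ± 0.06 (SE) on the log2 scale (adjusted p = 3.94e-12). The 3 members higher in HDAC1 cells were Snai2, Bdnf and Pthlh. Snai2, the transcription factor Slug, had 21.3, 20.1 and 20.7 CPM in HDAC1 cells, against 6.06, 8.73 and 5.81 CPM in TGFB1 cells and 20.3, 20.7 and 18.6 CPM in EV vehicle cells. Snai2 had a log2 fold change of 1.59 ± 0.12 (SE, adjusted p = 9.77e-10). HDAC1 libraries overlapped EV vehicle libraries for Snai2, and TGFB1 cells were below both. Klf10, an early TGF-beta response gene, was at an equal level, with 54.3, 42.2 and 53.1 CPM in HDAC1 cells, against 46.4, 51.96 and 44.6 CPM in TGFB1 cells and 44.6, 43.04 and 43.6 CPM in EV vehicle cells (95% interval -0.12 to 0.25).

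**Figure D4:**
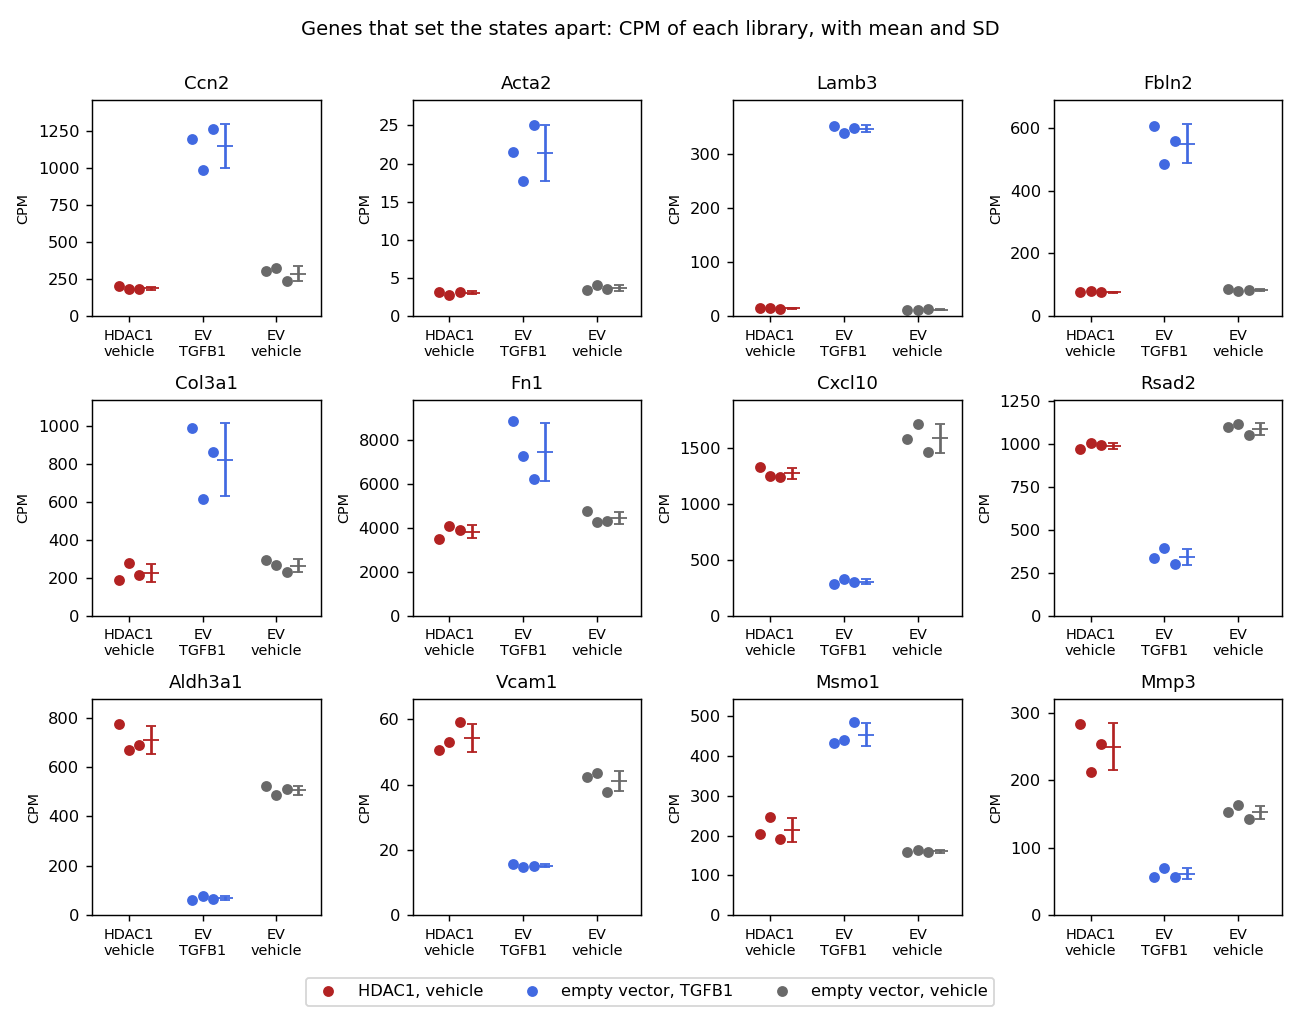
CPM of each library (points) for 12 genes that set the states apart, with the mean (tick) and SD (bar) of 3 libraries beside them, for HDAC1 cells, TGFB1 cells and EV vehicle cells. TGFB1 cells stand alone for Ccn2, Acta2, Lamb3, Fbln2, Col3a1 and Fn1 at the high end and for Cxcl10, Rsad2, Aldh3a1, Vcam1 and Mmp3 at the low end.

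The genes by which the pathway restrains itself mostly followed the same direction. Of 14 tested feedback inhibitors, 11 were lower in HDAC1 cells, 2 were higher and 1 was at an equal level. Smad7, which blocks the type I receptor, had 37.4, 36.8 and 46.3 CPM in HDAC1 cells, against 90.2, 92.5 and 83.5 CPM in TGFB1 cells and 38.9, 31.6 and 39.1 CPM in EV vehicle cells. Smad7 differed by -1.14 ± 0.09 (SE) on the log2 scale (adjusted p = 1.97e-09). HDAC1 and EV vehicle libraries of Smad7 overlapped, and TGFB1 cells were above both. Pmepa1, which sequesters receptor SMADs, had 157, 156 and 155 CPM in HDAC1 cells, against 615, 604 and 774 CPM in TGFB1 cells and 176, 177 and 166 CPM in EV vehicle cells. Pmepa1 had a log2 fold change of -2.09 ± 0.08 (SE, adjusted p = 1.85e-14). Skil, the SnoN corepressor, had 78.6, 72.3 and 82.01 CPM in HDAC1 cells, against 186, 178 and 157 CPM in TGFB1 cells and 85.1, 84.8 and 79.7 CPM in EV vehicle cells. Skil differed by -1.16 ± 0.07 (SE) on the log2 scale (adjusted p = 1.76e-11). Lefty1, a secreted antagonist of nodal-type ligands, was below 1 CPM in HDAC1 cells, with 0.687, 0.59 and 0.545 CPM in HDAC1 cells, against 9.09, 7.40 and 8.19 CPM in TGFB1 cells and 0.53, 0.689 and 0.93 CPM in EV vehicle cells. Lefty1 had a log2 fold change of -3.73 ± 0.20 (SE, adjusted p = 2.89e-12). Nedd4l, a ubiquitin ligase for receptor SMADs, went the other way, with 118, 110.0 and 111 CPM in HDAC1 cells, against 57.4, 60.3 and 49.6 CPM in TGFB1 cells and 98.8, 94.04 and 97.2 CPM in EV vehicle cells. Nedd4l differed by 1.02 ± 0.07 (SE) on the log2 scale (adjusted p = 4.18e-10). Ppm1a, a phosphatase of receptor SMADs, was at an equal level (95% interval -0.22 to 0.02).

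The transcripts of the 3 TGF-beta ligands were lower in HDAC1 cells, while the receptors and other ligand subunits went both ways. Of 19 ligands, receptors and SMADs tested, 9 were lower, 4 higher and 5 at equal levels, and 1 of the 5, Smad2, was also among the 9 lower. The 4 higher were the receptors Tgfbr2 and Tgfbr3 and the subunits Inha and Inhbb. Tgfb1 itself had 93.6, 104 and 94.6 CPM in HDAC1 cells, against 188, 179 and 188 CPM in TGFB1 cells and 112, 101 and 102 CPM in EV vehicle cells. Tgfb1 had a log2 fold change of -0.92 ± 0.07 (SE, adjusted p = 1.04e-09). The libraries of HDAC1 cells and EV vehicle cells overlapped for Tgfb1, and TGFB1 cells had a higher level of the transcript of the cytokine they were given. Tgfb3 had 98.2, 98.7 and 104 CPM in HDAC1 cells, against 266, 263 and 267 CPM in TGFB1 cells and 135, 125 and 121 CPM in EV vehicle cells. Tgfb3 differed by -1.40 ± 0.06 (SE) on the log2 scale (adjusted p = 8.95e-14). Tgfb2 had 21.98, 20.7 and 22.6 CPM in HDAC1 cells, against 75.2, 71.7 and 74.97 CPM in TGFB1 cells and 37.3, 39.5 and 29.2 CPM in EV vehicle cells (log2 fold change -1.76 ± 0.09 (SE), adjusted p = 2.05e-12), and for both the HDAC1 libraries lay below the EV vehicle libraries too. Inhba, the activin A subunit, differed by -1.55 ± 0.08 (SE) on the log2 scale (adjusted p = 4.98e-12), and Lrrc15, a surface protein of activated fibroblasts, by -1.63 ± 0.06 (adjusted p = 3.34e-14). At equal levels were the shared SMAD Smad4 (95% interval -0.21 to 0.04), the type I receptor Tgfbr1 (95% interval -0.25 to 0.03) and the coreceptor Eng (95% interval -0.21 to 0.06). Smad4 had 92.3, 83.9 and 86.4 CPM in HDAC1 cells, against 94.2, 96.4 and 87.9 CPM in TGFB1 cells and 95.2, 99.4 and 92.9 CPM in EV vehicle cells, and the HDAC1 and TGFB1 libraries overlapped.

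In the BMP branch, Bmpr1b, a BMP type I receptor, was one of the genes furthest apart, with 1.85, 2.12 and 1.52 CPM in HDAC1 cells, against 17.4, 20.6 and 15.4 CPM in TGFB1 cells and 1.19, 1.64 and 1.79 CPM in EV vehicle cells. Bmpr1b had a log2 fold change of -3.28 ± 0.15 (SE, adjusted p = 2.57e-13). Bmp2 was lower in HDAC1 cells, with 206, 189 and 212 CPM in HDAC1 cells, against 328, 340.4 and 319 CPM in TGFB1 cells and 190.1, 169 and 178 CPM in EV vehicle cells. Bmp2 differed by -0.70 ± 0.06 (SE) on the log2 scale (adjusted p = 1.2e-08). The BMP antagonists Nbl1 and Grem1 were higher, Grem1 with 548, 543 and 526 CPM in HDAC1 cells, against 351, 358 and 312 CPM in TGFB1 cells and 539, 563 and 491 CPM in EV vehicle cells. Grem1 had a log2 fold change of 0.66 ± 0.07 (SE, adjusted p = 2.56e-07). The BMP readouts Id1 (95% interval -0.21 to 0.19) and Id3 (95% interval -0.05 to 0.26) and the receptor Bmpr1a (95% interval -0.12 to 0.15) were at equal levels. Of 18 tested genes of this branch, 6 were lower, 4 higher and 3 at equal levels. The shares of all genes were 21.5%, 19.7% and 26.2%.

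Fibrillar collagens, the load-bearing collagens of scar tissue, were mostly lower in HDAC1 cells. Of 9 tested, 6 were lower and 1, Col11a2, was higher, and the list median was -0.77 (-0.22 for HDAC1 cells and 0.55 for TGFB1 cells over EV vehicle cells). Col11a2 was near 1 CPM or below except in HDAC1 replicate 1 (2.75, 0.747 and 0.779 CPM in HDAC1 cells, against 0.362, 0.556 and 0.893 CPM in TGFB1 cells and 0.442, 0.265 and 0.501 CPM in EV vehicle cells), and its HDAC1 and TGFB1 libraries overlapped (log2 fold change 1.29 ± 0.48 (SE), adjusted p = 0.0369). Without that library or without TGFB1 replicate 2 no fibrillar collagen was higher, whereas 2 were higher without EV vehicle replicate 1. Col3a1 had 186, 280.3 and 215 CPM in HDAC1 cells, against 992, 618 and 865 CPM in TGFB1 cells and 296, 266 and 229.8 CPM in EV vehicle cells. Col3a1 differed by -1.86 ± 0.21 (SE) on the log2 scale (adjusted p = 6.43e-05). TGFB1 cells stood above both other groups for Col3a1, and HDAC1 and EV vehicle libraries overlapped. Col1a1 had 2777, 3884 and 3465 CPM in HDAC1 cells, against 6636, 5226 and 5341 CPM in TGFB1 cells and 5727, 5145 and 4726 CPM in EV vehicle cells. Col1a1 had a log2 fold change of -0.76 ± 0.14 (SE, adjusted p = 0.000632). Unlike Col3a1, Col1a1 departed from EV vehicle cells in HDAC1 cells: its log2 fold change over EV vehicle cells was -0.62 in HDAC1 cells (adjusted p = 0.00946) and 0.14 in TGFB1 cells (adjusted p = 0.424). Col5a2, which pairs with type I collagen in fibrils, had 358, 388 and 356 CPM in HDAC1 cells, against 1158, 1038 and 1065 CPM in TGFB1 cells and 458, 465 and 406 CPM in EV vehicle cells. Col5a2 differed by -1.57 ± 0.07 (SE) on the log2 scale (adjusted p = 3.33e-13). Col6a1 and Col6a2, chains of the beaded filaments, were higher in HDAC1 cells, and Col6a1 had 135, 154 and 153 CPM in HDAC1 cells, against 90.7, 88.9 and 84.7 CPM in TGFB1 cells and 132, 121 and 127 CPM in EV vehicle cells. Col6a1 had a log2 fold change of 0.74 ± 0.07 (SE, adjusted p = 1.1e-08). Col14a1, a fibril-associated collagen, was higher by 2.20 ± 0.14 (SE) on the log2 scale (adjusted p = 4.72e-11), whereas Col8a1 (95% interval -0.01 to 0.28) and Col16a1 (95% interval -0.32 to 0.04) were at equal levels.

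Enzymes that finish and crosslink collagen were mixed. Of 24 tested, 11 were lower, 3 higher and 4 at equal levels, and without TGFB1 replicate 3 the higher were 5 and the equal 7. Lox, lysyl oxidase, had 136, 139.6 and 135 CPM in HDAC1 cells, against 445, 381 and 392 CPM in TGFB1 cells and 175, 167 and 151 CPM in EV vehicle cells. Lox differed by -1.57 ± 0.07 (SE) on the log2 scale (adjusted p = 4.73e-13). Its relative Loxl1 ran opposite, with 234, 266 and 235 CPM in HDAC1 cells, against 97.8, 88.2 and 103 CPM in TGFB1 cells and 300.4, 238 and 275 CPM in EV vehicle cells. Loxl1 had a log2 fold change of 1.35 ± 0.09 (SE, adjusted p = 1.23e-10). For both enzymes TGFB1 cells were the group furthest apart. HDAC1 cells differed from EV vehicle cells by -0.26 for Lox (adjusted p = 0.0176, no overlap) and -0.15 for Loxl1 (adjusted p = 0.279) on the log2 scale. Against EV vehicle cells, 14 of the 24 were lower and 0 higher in HDAC1 cells (7.32% and 6.64% of all genes). The 14 were 4 to 16 with 1 library left out. In TGFB1 cells 9 were lower and 7 higher (25.0% and 25.9% of all genes). The list medians were -0.24 in HDAC1 cells and -0.06 in TGFB1 cells. Plod2, the telopeptide lysyl hydroxylase, differed by -1.31 ± 0.07 (SE) on the log2 scale (adjusted p = 1.29e-12). The prolyl hydroxylase subunit P4ha3 differed by -1.07 ± 0.08 (adjusted p = 2.87e-10), while its paralog P4ha1 was at an equal level, with 246, 265 and 246 CPM in HDAC1 cells, against 249.8, 238 and 262 CPM in TGFB1 cells and 298, 301 and 266 CPM in EV vehicle cells (95% interval -0.12 to 0.15).

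Laminin-332 and anchoring fibril genes of the basement membrane held wide gaps. Lamb3, the beta 3 chain of laminin, had 15.7, 14.5 and 13.5 CPM in HDAC1 cells, against 351, 339 and 348 CPM in TGFB1 cells and 10.5, 11.6 and 12.4 CPM in EV vehicle cells. Lamb3 differed by -4.56 ± 0.08 (SE) on the log2 scale (adjusted p = 5.25e-20). TGFB1 cells were far above both other groups, and the HDAC1 libraries of Lamb3 all lay above the EV vehicle libraries. Col7a1, the anchoring fibril collagen, had 0.343, 0.236 and 0.273 CPM in HDAC1 cells, against 10.2, 8.22 and 9.63 CPM in TGFB1 cells and 0.574, 0.159 and 0.537 CPM in EV vehicle cells. Col7a1 had a log2 fold change of -4.98 ± 0.24 (SE, adjusted p = 8.66e-13). Nid1, which links laminin to collagen IV, had 85.03, 84.2 and 94.3 CPM in HDAC1 cells, against 239.8, 228 and 199 CPM in TGFB1 cells and 99.9, 103 and 99.2 CPM in EV vehicle cells. Nid1 differed by -1.34 ± 0.07 (SE) on the log2 scale (adjusted p = 2.25e-12). Lamb2, the beta chain of the mature glomerular and synaptic membranes, was higher in HDAC1 cells, with 113, 113 and 109 CPM in HDAC1 cells, against 68.8, 69.2 and 60.5 CPM in TGFB1 cells and 158, 129.7 and 138 CPM in EV vehicle cells. Lamb2 had a log2 fold change of 0.75 ± 0.07 (SE, adjusted p = 3.7e-08). Lamc1, the gamma chain shared by most laminins, was at an equal level (95% interval -0.08 to 0.23) with both states below EV vehicle cells (-0.37 in HDAC1 cells and -0.44 in TGFB1 cells on the log2 scale). Of 21 basement membrane genes tested, 11 were lower, 6 higher and 1 at an equal level.

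Matrix glycoproteins were mostly lower, with 12 of 20 tested lower and 3 higher and a median of -0.71. Fn1, fibronectin, had 3508, 4099 and 3901 CPM in HDAC1 cells, against 8865, 7292 and 6247 CPM in TGFB1 cells and 4782, 4277 and 4336 CPM in EV vehicle cells. Fn1 differed by -0.96 ± 0.10 (SE) on the log2 scale (adjusted p = 2.8e-07). The TGFB1 libraries of Fn1 were spread widely and still lay above all others. Fbln2, a fibulin that bridges fibronectin and laminin, had 75.8, 78.7 and 75.97 CPM in HDAC1 cells, against 606, 485 and 559 CPM in TGFB1 cells and 85.5, 81.2 and 84.1 CPM in EV vehicle cells. Fbln2 had a log2 fold change of -2.84 ± 0.08 (SE, adjusted p = 3.41e-16). Postn, periostin, had 5.34, 6.17 and 5.73 CPM in HDAC1 cells, against 54.1, 36.7 and 47.2 CPM in TGFB1 cells and 6.85, 9.59 and 6.30 CPM in EV vehicle cells. Postn differed by -3.01 ± 0.15 (SE) on the log2 scale (adjusted p = 2.29e-11). The HDAC1 libraries of Fbln2 and Postn lay just below the EV vehicle libraries, far from the TGFB1 libraries. Thbs1, which can release TGFB1 from its latent form, differed by -1.25 ± 0.08 (SE) on the log2 scale (adjusted p = 3.04e-11) and Tnc, tenascin C, by -1.05 ± 0.06 (adjusted p = 2.28e-11). Fbln5, an elastic fibre fibulin, was higher in HDAC1 cells although both states were below EV vehicle cells, with 155, 159.8 and 158 CPM in HDAC1 cells, against 82.3, 78.9 and 83.7 CPM in TGFB1 cells and 264, 253 and 232 CPM in EV vehicle cells. Fbln5 had a log2 fold change of 0.95 ± 0.06 (SE, adjusted p = 1.23e-10). Spp1, osteopontin, was at an equal level, with 3870.4, 3939 and 3462 CPM in HDAC1 cells, against 4023, 3777 and 4396 CPM in TGFB1 cells and 4094, 4399 and 3742 CPM in EV vehicle cells (95% interval -0.27 to 0.04). Of the elastic fibre genes, 5 of 10 tested were lower (3 without HDAC1 replicate 1 or TGFB1 replicate 1), led by Ltbp2 with 213, 227 and 224 CPM in HDAC1 cells, against 610.5, 507 and 499 CPM in TGFB1 cells and 320.1, 299 and 285 CPM in EV vehicle cells. Ltbp2 differed by -1.28 ± 0.08 (SE) on the log2 scale (adjusted p = 2.16e-11).

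Contractile genes were lower more often than higher in HDAC1 cells, with 11 of 20 tested lower, 4 higher (6 without TGFB1 replicate 1 or TGFB1 replicate 2) and a median of -0.37. At least 2-fold lower were 2, Acta2 and Smtn, and at least 2-fold higher were 3, Myh11, Mylk and Lmod1. Acta2, the alpha smooth muscle actin that marks myofibroblasts, had 3.20, 2.83 and 3.12 CPM in HDAC1 cells, against 21.5, 17.8 and 25.1 CPM in TGFB1 cells and 3.45, 4.08 and 3.51 CPM in EV vehicle cells. Acta2 had a log2 fold change of -2.81 ± 0.13 (SE, adjusted p = 4.67e-13). No HDAC1 or EV vehicle library of Acta2 came near a TGFB1 library. Smtn, smoothelin, had 39.5, 40.4 and 39.8 CPM in HDAC1 cells, against 84.1, 79.3 and 84.1 CPM in TGFB1 cells and 37.3, 37.4 and 39.96 CPM in EV vehicle cells. Smtn differed by -1.05 ± 0.07 (SE) on the log2 scale (adjusted p = 5.05e-11). Tpm1, a tropomyosin, had 276, 326 and 301 CPM in HDAC1 cells, against 578, 518 and 630.0 CPM in TGFB1 cells and 274, 335 and 314 CPM in EV vehicle cells. Tpm1 had a log2 fold change of -0.94 ± 0.08 (SE, adjusted p = 9.47e-09). Cald1, caldesmon, was lower, at -0.99 ± 0.08 (SE) on the log2 scale (adjusted p = 1.24e-09). Myh11, the smooth muscle myosin heavy chain, ran opposite to Acta2, with 12.7, 15.2 and 14.6 CPM in HDAC1 cells, against 6.19, 5.65 and 4.56 CPM in TGFB1 cells and 19.9, 23.1 and 22.4 CPM in EV vehicle cells. Myh11 differed by 1.36 ± 0.12 (SE) on the log2 scale (adjusted p = 1.34e-08). TGFB1 cells were lowest and EV vehicle cells highest for Myh11. Lmod1, leiomodin of smooth muscle, was below 2 CPM in every library and was higher by 3.25 ± 0.50 (SE) on the log2 scale (adjusted p = 1.86e-05). Vcl, vinculin, was at an equal level (95% interval 0.00 to 0.29). Among YAP/TAZ targets, which respond to tension in these filaments, 8 of 22 tested were lower and 6 higher. The shares of all genes were 21.5% lower and 19.7% higher. Ajuba was lower, at -1.06 ± 0.08 (adjusted p = 1.2e-09), whereas the YAP partner Tead1 was at an equal level (95% interval -0.29 to 0.25).

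Matrix proteases and their inhibitors went both ways. Of 23 tested, 11 were higher and 8 lower in HDAC1 cells, and without TGFB1 replicate 1 there were 7 of each. Mmp3, stromelysin 1, had 283, 213 and 254 CPM in HDAC1 cells, against 57.2, 70.7 and 56.6 CPM in TGFB1 cells and 152, 163 and 143 CPM in EV vehicle cells. Mmp3 had a log2 fold change of 2.02 ± 0.18 (SE, adjusted p = 5.3e-06). All HDAC1 libraries of Mmp3 lay above the EV vehicle libraries, and all TGFB1 libraries below them. Mmp9, gelatinase B, had 17.2, 14.2 and 16.1 CPM in HDAC1 cells, against 8.68, 7.70 and 7.74 CPM in TGFB1 cells and 14.98, 11.9 and 12.6 CPM in EV vehicle cells. Mmp9 differed by 0.98 ± 0.12 (SE) on the log2 scale (adjusted p = 6.43e-07). Mmp14, the membrane-bound collagenase, was lower, with 172, 196 and 184 CPM in HDAC1 cells, against 407, 386 and 398 CPM in TGFB1 cells and 237, 224 and 225 CPM in EV vehicle cells. Mmp14 had a log2 fold change of -1.11 ± 0.06 (SE, adjusted p = 1.05e-11). The inhibitor Timp3 was lower, with 66.5, 63.4 and 60.00 CPM in HDAC1 cells, against 174, 166 and 156 CPM in TGFB1 cells and 68.8, 63.2 and 70.4 CPM in EV vehicle cells. Timp3 differed by -1.38 ± 0.06 (SE) on the log2 scale (adjusted p = 4.21e-13). Timp1 was at an equal level, with 135, 125 and 113 CPM in HDAC1 cells, against 119.8, 111 and 135 CPM in TGFB1 cells and 122, 129 and 112 CPM in EV vehicle cells (95% interval -0.13 to 0.19). In the plasminogen system, Serpinb2, the inhibitor PAI-2, had 31.2, 23.5 and 27.9 CPM in HDAC1 cells, against 2.03, 3.64 and 2.28 CPM in TGFB1 cells and 13.7, 12.6 and 16.8 CPM in EV vehicle cells. Serpinb2 had a log2 fold change of 3.37 ± 0.22 (SE, adjusted p = 9.91e-09). The urokinase receptor gene Plaur was lower, at -1.08 ± 0.08 (SE) on the log2 scale (adjusted p = 3.14e-10), and Serpine2, protease nexin 1, was higher by 0.66 ± 0.06 (adjusted p = 4.72e-08).

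Integrins split between the states, with 8 of 16 tested higher, 7 lower and 1 at an equal level. The collagen receptors Itga2 and Itga1 were lower in HDAC1 cells, Itga2 with 22.6, 19.7 and 22.8 CPM in HDAC1 cells, against 125, 130.2 and 103 CPM in TGFB1 cells and 14.1, 16.6 and 16.6 CPM in EV vehicle cells. Itga2 differed by -2.46 ± 0.10 (SE) on the log2 scale (adjusted p = 1.39e-13). Itgb3, the beta chain of a vitronectin receptor, was lower, at -1.94 ± 0.11 (SE) on the log2 scale (adjusted p = 6.23e-12). The laminin receptors Itga3 and Itgb4 were higher, Itga3 with 795, 735 and 798 CPM in HDAC1 cells, against 249, 267 and 225 CPM in TGFB1 cells and 752, 625 and 732 CPM in EV vehicle cells. Itga3 had a log2 fold change of 1.65 ± 0.08 (SE, adjusted p = 5.49e-13). HDAC1 and EV vehicle libraries overlapped for Itga3, and TGFB1 cells were lowest. Itgb5 was at an equal level (95% interval -0.21 to 0.15). Hyaluronan, a large glycan of injured tissue, is made by Has2, which had 25.4, 24.1 and 25.6 CPM in HDAC1 cells, against 127, 117 and 119 CPM in TGFB1 cells and 17.8, 20.2 and 17.3 CPM in EV vehicle cells. Has2 differed by -2.27 ± 0.08 (SE) on the log2 scale (adjusted p = 7.29e-15). It is cut by Hyal1, which had 5.71, 5.70 and 6.12 CPM in HDAC1 cells, against 1.18, 1.33 and 1.09 CPM in TGFB1 cells and 5.26, 4.66 and 5.12 CPM in EV vehicle cells. Hyal1 had a log2 fold change of 2.28 ± 0.17 (SE, adjusted p = 1.1e-09). Tnfaip6, which couples hyaluronan to matrix proteins, had 5.07, 5.15 and 6.39 CPM in HDAC1 cells, against 47.2, 45.5 and 52.05 CPM in TGFB1 cells and 4.95, 4.29 and 5.76 CPM in EV vehicle cells. Tnfaip6 differed by -3.13 ± 0.10 (SE) on the log2 scale (adjusted p = 2.17e-15).

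Beyond these lists, the 15 largest differences each way among genes that averaged at least 2 on the log2 CPM scale, with no overlap between the groups, held further genes that were highest in TGFB1 cells. Genes below that level, such as Wnt2, Col7a1, Lmcd1 and Lefty1 among those lower and Ccl20 among those higher, were not ranked. Enpp1, which makes extracellular pyrophosphate, had 50.01, 48.96 and 50.3 CPM in HDAC1 cells, against 559.9, 499 and 518 CPM in TGFB1 cells and 35.6, 37.6 and 40.9 CPM in EV vehicle cells. Enpp1 had a log2 fold change of -3.40 ± 0.07 (SE, adjusted p = 6.89e-19). Neu1, the lysosomal sialidase, had 47.7, 49.7 and 45.2 CPM in HDAC1 cells, against 388, 383 and 422 CPM in TGFB1 cells and 65.7, 62.1 and 66.1 CPM in EV vehicle cells. Neu1 differed by -3.06 ± 0.07 (SE) on the log2 scale (adjusted p = 3.9e-18). Enpp1 was above and Neu1 below the EV vehicle level in HDAC1 cells, each by a small called amount (0.39 and -0.44 on the log2 scale). Il1rl1, the receptor of interleukin 33, had 24.8, 13.8 and 21.4 CPM in HDAC1 cells, against 121, 138 and 108 CPM in TGFB1 cells and 8.39, 7.63 and 9.55 CPM in EV vehicle cells. Il1rl1 had a log2 fold change of -2.61 ± 0.20 (SE, adjusted p = 3.02e-06). It was raised over EV vehicle cells in both states, by 1.23 in HDAC1 cells and 3.83 in TGFB1 cells on the log2 scale. Egfr, the receptor of epidermal growth factor, had 17.1, 14.6 and 17.4 CPM in HDAC1 cells, against 119, 113 and 104 CPM in TGFB1 cells and 16.04, 18.9 and 17.1 CPM in EV vehicle cells. Egfr differed by -2.77 ± 0.08 (SE) on the log2 scale (adjusted p = 4.28e-16). Its ligand Hbegf was lower, at -1.81 ± 0.11 (SE) on the log2 scale (adjusted p = 1.34e-11), while another of its ligands, Areg, was higher by 1.71 ± 0.12 (adjusted p = 3.62e-10). Slc47a1, an exporter of organic cations, had 6.92, 6.92 and 7.87 CPM in HDAC1 cells, against 65.9, 58.5 and 70.6 CPM in TGFB1 cells and 10.2, 10.2 and 14.2 CPM in EV vehicle cells. Slc47a1 had a log2 fold change of -3.17 ± 0.12 (SE, adjusted p = 5.51e-14). Igfbp5, a carrier of insulin-like growth factors, had 7.34, 10.6 and 9.78 CPM in HDAC1 cells, against 63.6, 55.5 and 52.1 CPM in TGFB1 cells and 14.1, 14.2 and 11.2 CPM in EV vehicle cells. Igfbp5 differed by -2.64 ± 0.13 (SE) on the log2 scale (adjusted p = 1.39e-11). Of 32 growth factors and receptors tested, 12 were lower and 12 higher. Fam167a was lower, at -2.64 ± 0.08 (SE) on the log2 scale (adjusted p = 4.4e-16).

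WNT genes held the gene with the largest difference of the lower list members, Wnt2, which had 0.132, 0.118 and 0.156 CPM in HDAC1 cells, against 8.09, 8.43 and 7.94 CPM in TGFB1 cells and 0.133, 0.106 and 0.107 CPM in EV vehicle cells. Wnt2 had a log2 fold change of -5.86 ± 0.23 (SE, adjusted p = 3.22e-14). Wnt2 was below 1 CPM in every HDAC1 and EV vehicle library. Tcf7 and Lef1, the DNA-binding partners of beta-catenin, were both lower, Tcf7 with 3.72, 4.29 and 4.29 CPM in HDAC1 cells, against 27.3, 23.97 and 25.5 CPM in TGFB1 cells and 6.41, 5.72 and 5.47 CPM in EV vehicle cells (log2 fold change -2.65 ± 0.10 (SE), adjusted p = 2.8e-14) and Lef1 at -1.51 ± 0.07 (SE) on the log2 scale (adjusted p = 9.45e-13). Axin2, a feedback target of this pathway, was lower, at -1.07 ± 0.09 (adjusted p = 6.54e-09), and the WNT receptor Fzd1 had 123, 151 and 127 CPM in HDAC1 cells, against 512, 442 and 469 CPM in TGFB1 cells and 227, 213 and 196 CPM in EV vehicle cells. Fzd1 differed by -1.83 ± 0.09 (SE) on the log2 scale (adjusted p = 5.72e-13). Dkk3 was at an equal level and below EV vehicle cells in both states, with 90.4, 99.4 and 91.1 CPM in HDAC1 cells, against 92.98, 91.8 and 86.8 CPM in TGFB1 cells and 138, 134 and 123 CPM in EV vehicle cells (95% interval -0.09 to 0.18). Of 24 WNT genes tested, 9 were lower, 7 higher and 4 at equal levels, against 21.5%, 19.7% and 26.2% of all genes.

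Of the 15 genes with the largest difference upward at a mean log2 CPM of at least 2, with no overlap between the groups, TGFB1 cells were below EV vehicle cells for 14, all but Hdac1l. Aldh3a1, an aldehyde dehydrogenase of oxidant defence, had 775, 670.0 and 687 CPM in HDAC1 cells, against 62.2, 76.5 and 67.2 CPM in TGFB1 cells and 522, 485 and 510.3 CPM in EV vehicle cells. Aldh3a1 had a log2 fold change of 3.37 ± 0.08 (SE, adjusted p = 1.34e-17). The 3 groups of Aldh3a1 were fully apart, with HDAC1 cells above and TGFB1 cells far below EV vehicle cells. Hs3st1, which sulfates heparan chains, had 39.7, 39.8 and 37.5 CPM in HDAC1 cells, against 4.88, 4.37 and 5.26 CPM in TGFB1 cells and 31.5, 25.2 and 28.98 CPM in EV vehicle cells (log2 fold change 3.01 ± 0.11 (SE), adjusted p = 1.48e-14), in the same order. Etv1, an ETS transcription factor, had 36.8, 39.3 and 39.2 CPM in HDAC1 cells, against 5.33, 5.05 and 5.01 CPM in TGFB1 cells and 34.6, 37.7 and 30.7 CPM in EV vehicle cells. Etv1 differed by 2.90 ± 0.10 (SE) on the log2 scale (adjusted p = 2.37e-15). Selenbp1, a selenium-binding protein, had 50.96, 65.2 and 49.5 CPM in HDAC1 cells, against 6.92, 4.19 and 7.94 CPM in TGFB1 cells and 105, 115 and 82.4 CPM in EV vehicle cells (log2 fold change 3.13 ± 0.20 (SE), adjusted p = 6.29e-08), so it was lower in both states than in EV vehicle cells and lowest in TGFB1 cells. Acod1, which makes the macrophage metabolite itaconate, had 95.9, 101 and 90.7 CPM in HDAC1 cells, against 14.3, 16.1 and 18.5 CPM in TGFB1 cells and 140.4, 159 and 129 CPM in EV vehicle cells (log2 fold change 2.56 ± 0.09 (SE), adjusted p = 8.43e-15), in the order of Selenbp1. Sema6a and Sema3a, guidance cues, were higher by 2.79 ± 0.12 and 2.39 ± 0.12 (SE) on the log2 scale (adjusted p = 7.49e-13 and 1.12e-12). Il20rb, an interleukin receptor subunit, had 18.3, 20.4 and 19.2 CPM in HDAC1 cells, against 2.17, 3.04 and 2.98 CPM in TGFB1 cells and 24.3, 22.6 and 21.5 CPM in EV vehicle cells. Il20rb had a log2 fold change of 2.82 ± 0.15 (SE, adjusted p = 2.81e-12). Pla2g2a, a secreted phospholipase, had 22.6, 28.8 and 26.3 CPM in HDAC1 cells, against 4.38, 3.94 and 5.26 CPM in TGFB1 cells and 35.6, 40.7 and 34.7 CPM in EV vehicle cells. Pla2g2a differed by 2.52 ± 0.12 (SE) on the log2 scale (adjusted p = 1.06e-12).

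For some genes the states lay on opposite sides of the EV vehicle libraries with no overlap. At a mean log2 CPM of at least 2, the 8 with the largest direct difference upward were Aldh3a1, Serpinb2, Hs3st1, AABR07044388.2, Cxcl3, Ppl, Cyp3a9 and Aqp1. Aqp1, a water channel, had 41.1, 49.4 and 44.6 CPM in HDAC1 cells, against 10.98, 8.65 and 9.23 CPM in TGFB1 cells and 36.1, 29.8 and 35.4 CPM in EV vehicle cells. Aqp1 had a log2 fold change of 2.22 ± 0.13 (SE, adjusted p = 5.16e-11). Cyp3a9, a cytochrome P450, had 18.7, 14.1 and 15.4 CPM in HDAC1 cells, against 2.53, 4.37 and 3.37 CPM in TGFB1 cells and 12.4, 11.1 and 10.7 CPM in EV vehicle cells. Cyp3a9 differed by 2.23 ± 0.16 (SE) on the log2 scale (adjusted p = 2.49e-10). Ppl, periplakin, had 158, 165 and 165 CPM in HDAC1 cells, against 31.6, 37.6 and 29.3 CPM in TGFB1 cells and 153, 140.5 and 155 CPM in EV vehicle cells (log2 fold change 2.31 ± 0.08 (SE), adjusted p = 2.45e-15), although its distance from EV vehicle cells in HDAC1 cells was not called (0.12 on the log2 scale, adjusted p = 0.297). The 8 downward were Slc47a1, Neu1, Postn, Fbln2, Acta2, Tcf7, Igfbp5 and Ccn2, of which Postn, Fbln2 and Acta2 were not called in HDAC1 cells against EV vehicle cells (adjusted p = 0.144, 0.347 and 0.291).

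Interferon-stimulated genes were mostly higher in HDAC1 cells than in TGFB1 cells, while 2 were called higher than in EV vehicle cells. Of 50 tested, 34 were higher, 4 lower and 9 at equal levels, and the median was 0.31 (-0.23 for HDAC1 cells and -0.60 for TGFB1 cells over EV vehicle cells). The 4 lower were 1 without HDAC1 replicate 1, HDAC1 replicate 3 or TGFB1 replicate 1, and 2 without TGFB1 replicate 3, EV vehicle replicate 1 or EV vehicle replicate 3. Against EV vehicle cells, 29 members were lower and 2 higher in HDAC1 cells, where 7.32% of all genes were lower and 6.64% higher. In TGFB1 cells 46 were lower, against 25.0% of all genes. The 29 were 19 without HDAC1 replicate 1 and 18 without HDAC1 replicate 3. Cxcl10, a chemokine that draws T cells, had 1328, 1245 and 1241 CPM in HDAC1 cells, against 281, 325 and 299 CPM in TGFB1 cells and 1577, 1715 and 1459.6 CPM in EV vehicle cells. Cxcl10 had a log2 fold change of 2.08 ± 0.08 (SE, adjusted p = 1.73e-14). TGFB1 cells were far below both other groups, and the HDAC1 libraries lay below the EV vehicle libraries by less. Rsad2, the antiviral enzyme viperin, had 968, 1002 and 994 CPM in HDAC1 cells, against 335, 393 and 301 CPM in TGFB1 cells and 1097, 1116 and 1048 CPM in EV vehicle cells. Rsad2 differed by 1.53 ± 0.08 (SE) on the log2 scale (adjusted p = 1.41e-12). Ifit3, an RNA-binding antiviral protein, departed from this order, with 393, 385 and 381 CPM in HDAC1 cells, against 159, 175 and 149 CPM in TGFB1 cells and 289.9, 286 and 264 CPM in EV vehicle cells (log2 fold change 1.26 ± 0.07 (SE), adjusted p = 3.07e-12), so HDAC1 cells were above EV vehicle cells. Gbp5, an interferon-induced GTPase, was higher by 1.60 ± 0.08 (SE) on the log2 scale (adjusted p = 1.33e-12), and Oasl by 1.18 ± 0.07 (adjusted p = 2.32e-11). Usp18, which restrains interferon receptors, was at an equal level, with 509, 536 and 501 CPM in HDAC1 cells, against 493, 492 and 526 CPM in TGFB1 cells and 611, 622 and 587 CPM in EV vehicle cells (95% interval -0.09 to 0.16). Oas2, which makes the activator of RNase L, was also at an equal level and lower in both states than in EV vehicle cells (-0.81 in HDAC1 cells and -0.89 in TGFB1 cells on the log2 scale).

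Antigen processing genes had medians below EV vehicle cells in both states. Of 16 tested, 8 were at equal levels (5 without HDAC1 replicate 2, TGFB1 replicate 1 or TGFB1 replicate 2), 4 higher and 1 lower, and the median was -0.31 for HDAC1 cells and -0.33 for TGFB1 cells over EV vehicle cells. Tap1, the peptide transporter, had 291, 339.9 and 306 CPM in HDAC1 cells, against 317, 309 and 320.2 CPM in TGFB1 cells and 406, 339 and 383 CPM in EV vehicle cells (95% interval -0.18 to 0.15). Tapbp, tapasin, had 295, 378 and 339 CPM in HDAC1 cells, against 324, 323 and 345 CPM in TGFB1 cells and 439, 386 and 421 CPM in EV vehicle cells (95% interval -0.15 to 0.20), and the trimming peptidase Erap1 was equal within -0.05 to 0.20. Nlrc5, the transactivator of these genes, was higher in HDAC1 cells, with 32.5, 38.1 and 36.3 CPM in HDAC1 cells, against 22.7, 24.6 and 19.3 CPM in TGFB1 cells and 42.1, 40.98 and 42.5 CPM in EV vehicle cells. Nlrc5 had a log2 fold change of 0.68 ± 0.09 (SE, adjusted p = 2.09e-06).

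Chemokines had the highest median of all lists, 1.34, with 11 of 16 tested higher and 2 lower (1 lower when any library but TGFB1 replicate 2 was left out). Their median over EV vehicle cells was 0.32 in HDAC1 cells and -0.69 in TGFB1 cells. Against EV vehicle cells, 5 were higher and 6 lower in HDAC1 cells (3 lower without EV vehicle replicate 2), and 1 was higher and 10 lower in TGFB1 cells. Their summed level was 2682 to 2867 CPM in HDAC1 cells, 1693 to 1981 CPM in TGFB1 cells and 3018 to 3412 CPM in EV vehicle cells. Cxcl3, a neutrophil attractant, had 26.2, 14.6 and 19.9 CPM in HDAC1 cells, against 3.71, 4.45 and 2.93 CPM in TGFB1 cells and 11.97, 12.03 and 12.2 CPM in EV vehicle cells. Cxcl3 differed by 2.45 ± 0.19 (SE) on the log2 scale (adjusted p = 1.09e-08). HDAC1 libraries of Cxcl3 were spread from 14.6 to 26.2 CPM and all lay above the EV vehicle libraries. Ccl20, which attracts cells that carry the receptor Ccr6, had 4.70, 4.36 and 4.60 CPM in HDAC1 cells, against 0.316, 0.257 and 0.149 CPM in TGFB1 cells and 4.37, 4.77 and 3.43 CPM in EV vehicle cells. Ccl20 had a log2 fold change of 4.20 ± 0.42 (SE, adjusted p = 9.3e-08). Cxcl12, a chemokine of stromal cells, was lower in both states than in EV vehicle cells and lowest in TGFB1 cells, with 48.1, 60.3 and 49.9 CPM in HDAC1 cells, against 14.2, 13.1 and 14.6 CPM in TGFB1 cells and 95.5, 116 and 76.2 CPM in EV vehicle cells. Cxcl12 differed by 1.92 ± 0.15 (SE) on the log2 scale (adjusted p = 1.84e-07). Cx3cl1, fractalkine, had 5.52, 5.07 and 5.26 CPM in HDAC1 cells, against 1.72, 1.84 and 1.79 CPM in TGFB1 cells and 3.75, 3.60 and 3.51 CPM in EV vehicle cells. Cx3cl1 had a log2 fold change of 1.57 ± 0.18 (SE, adjusted p = 3.75e-07).

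NF-kB and inflammatory targets were higher in 16 of 28 tested and lower in 4, while the NF-kB subunits Rela and Nfkb1 were at equal levels. The largest difference of this list was downward, in Tnfaip6, described above with hyaluronan (log2 fold change -3.13 ± 0.10 (SE), adjusted p = 2.17e-15). Vcam1, an adhesion molecule, had 50.7, 53.1 and 59.1 CPM in HDAC1 cells, against 15.6, 14.9 and 14.98 CPM in TGFB1 cells and 42.3, 43.4 and 37.8 CPM in EV vehicle cells. Vcam1 differed by 1.84 ± 0.09 (SE) on the log2 scale (adjusted p = 4.16e-13). Icam1, another adhesion molecule, had 329.6, 332 and 338 CPM in HDAC1 cells, against 173, 176 and 172 CPM in TGFB1 cells and 417, 394 and 394 CPM in EV vehicle cells. Icam1 had a log2 fold change of 0.94 ± 0.06 (SE, adjusted p = 1.68e-11). For Vcam1 HDAC1 cells were the highest group, and for Icam1 EV vehicle cells were. Csf1, the macrophage growth factor, was higher by 0.84 ± 0.07 (SE) on the log2 scale (adjusted p = 2.1e-09), and Tnfaip2 by 0.99 ± 0.06 (adjusted p = 3.73e-11). Rela had 171, 180.4 and 187 CPM in HDAC1 cells, against 181, 172 and 165 CPM in TGFB1 cells and 198, 187 and 182 CPM in EV vehicle cells (95% interval -0.07 to 0.18), and Nfkb1 was equal within -0.20 to 0.09. Of 16 complement and acute-phase genes, 6 were higher and 3 lower (1 lower without HDAC1 replicate 3), and both states were below EV vehicle cells for the proteases C1r and C1s. C1r had 1023, 1238 and 1046 CPM in HDAC1 cells, against 816, 757 and 851 CPM in TGFB1 cells and 2007, 1960.2 and 1719 CPM in EV vehicle cells. C1r differed by 0.45 ± 0.08 (SE) on the log2 scale (adjusted p = 0.000121). Lbp, which carries bacterial lipopolysaccharide, was equal in both states and less than the EV vehicle level, with 9.19, 13.02 and 10.9 CPM in HDAC1 cells, against 10.2, 9.97 and 11.9 CPM in TGFB1 cells and 29.1, 25.4 and 24.8 CPM in EV vehicle cells (95% interval -0.21 to 0.29).

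Immediate early genes depended on single libraries. Of 24 AP-1, EGR and related genes, 9 were higher (15 without HDAC1 replicate 2), 3 lower and 3 at equal levels. The median was 0.50, and 0.14 without HDAC1 replicate 1, the library in which Fos, Fosb, Nr4a1, Nr4a2 and Egr3 stood out. Jun, a partner of Fos, had 392, 331 and 372 CPM in HDAC1 cells, against 143, 161 and 138 CPM in TGFB1 cells and 296, 227 and 289.9 CPM in EV vehicle cells. Jun had a log2 fold change of 1.31 ± 0.09 (SE, adjusted p = 5.8e-10). Klf4, a zinc finger factor, had 185, 162 and 187 CPM in HDAC1 cells, against 56.8, 64.4 and 59.9 CPM in TGFB1 cells and 171, 149 and 169 CPM in EV vehicle cells. Klf4 differed by 1.56 ± 0.08 (SE) on the log2 scale (adjusted p = 1.49e-12). Atf3, a stress-induced factor, had 37.6, 33.1 and 34.9 CPM in HDAC1 cells, against 16.2, 20.8 and 17.9 CPM in TGFB1 cells and 30.2, 24.01 and 28.9 CPM in EV vehicle cells. Atf3 had a log2 fold change of 0.94 ± 0.11 (SE, adjusted p = 1.15e-06). Junb was lower, with 170.4, 163 and 166 CPM in HDAC1 cells, against 292, 284 and 315 CPM in TGFB1 cells and 177, 139 and 186 CPM in EV vehicle cells. Junb differed by -0.84 ± 0.09 (SE) on the log2 scale (adjusted p = 1.92e-07). Of their feedback genes, Dusp1 was higher by 1.41 ± 0.11 (SE) on the log2 scale (adjusted p = 1.9e-09) and Spry1 by 1.92 ± 0.13 (adjusted p = 9.32e-11), while Dusp4 was lower, at -1.20 ± 0.14 (adjusted p = 4.64e-07).

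Mitosis genes were mostly at equal levels in both states and above EV vehicle cells. Of 39 mitosis genes tested, 25 were at equal levels, 12 lower and 2 higher, and the list median was -0.07. Only 24 of the 25 were without a call, and 1 gene was neither called nor at an equal level. Over EV vehicle cells the median was 0.53 in HDAC1 cells and 0.59 in TGFB1 cells, with 38 members called higher in HDAC1 cells and 39 in TGFB1 cells. The 12 lower were 5 without HDAC1 replicate 2, 7 without HDAC1 replicate 3 and 5 without TGFB1 replicate 3, and the 2 higher were 1 without HDAC1 replicate 1 and 4 without HDAC1 replicate 2. Mki67, the proliferation antigen, had 458, 398 and 477 CPM in HDAC1 cells, against 472, 490.3 and 375 CPM in TGFB1 cells and 279, 292 and 310.0 CPM in EV vehicle cells (95% interval -0.20 to 0.19). HDAC1 and TGFB1 libraries of Mki67 were interleaved, and all lay above the EV vehicle libraries. Tpx2, which organises the spindle, had 224, 206 and 214 CPM in HDAC1 cells, against 218, 221 and 213 CPM in TGFB1 cells and 145, 143 and 155 CPM in EV vehicle cells (95% interval -0.14 to 0.11). Cdc20, the activator of the anaphase ubiquitin ligase, had 78.9, 68.4 and 70.5 CPM in HDAC1 cells, against 70.8, 67.8 and 72.7 CPM in TGFB1 cells and 44.5, 36.5 and 47.5 CPM in EV vehicle cells (95% interval -0.12 to 0.21). Aurkb, the kinase of the chromosomal passenger complex, was equal within -0.16 to 0.15, and the checkpoint kinase Bub1b within -0.17 to 0.08. Kif11, the motor that separates spindle poles, was raised in both states and more in TGFB1 cells, with 156, 144 and 154 CPM in HDAC1 cells, against 224, 228 and 202 CPM in TGFB1 cells and 104, 108 and 110.0 CPM in EV vehicle cells. Kif11 had a log2 fold change of -0.53 ± 0.06 (SE, adjusted p = 1.09e-06). Anln, a cytokinesis scaffold, was higher in HDAC1 cells, with 325, 268 and 315 CPM in HDAC1 cells, against 240.2, 241 and 198 CPM in TGFB1 cells and 195, 181 and 212 CPM in EV vehicle cells. Anln differed by 0.42 ± 0.08 (SE) on the log2 scale (adjusted p = 0.000357).

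**Figure D5:**
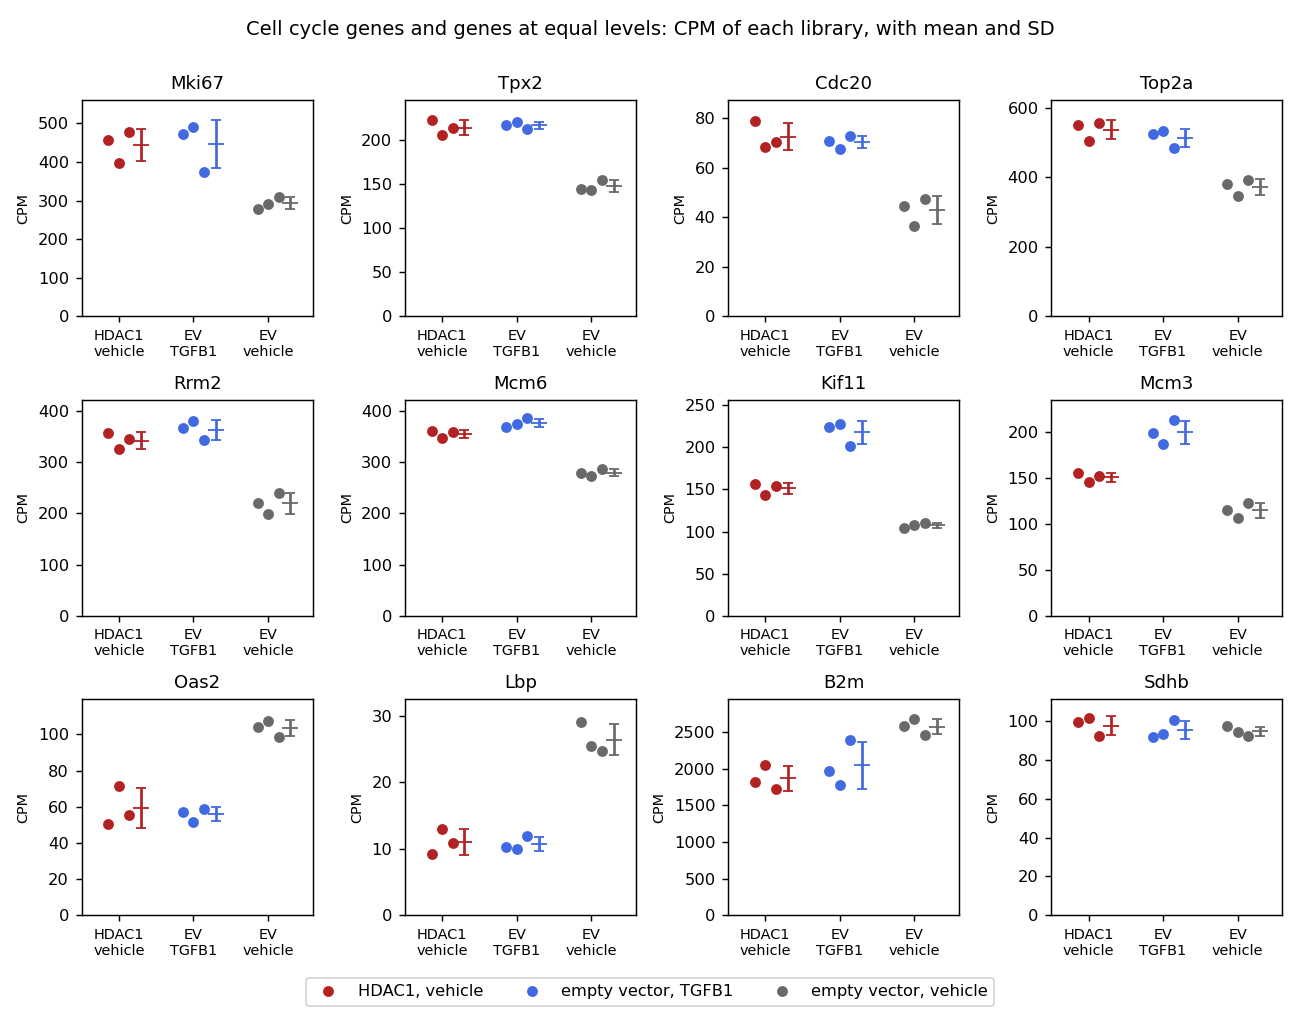
CPM of each library (points) for 12 genes of the cell cycle or at equal levels, with the mean (tick) and SD (bar) of 3 libraries beside them, for HDAC1 cells, TGFB1 cells and EV vehicle cells. HDAC1 and TGFB1 libraries lie together above EV vehicle cells for Mki67, Tpx2, Cdc20, Top2a, Rrm2 and Mcm6 and together below them for Oas2, Lbp and B2m, while Kif11 and Mcm3 are higher in TGFB1 cells.

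DNA replication genes were mostly lower in HDAC1 cells than in TGFB1 cells, with both states above EV vehicle cells. Of 41 tested, 25 were lower in HDAC1 cells, 0 higher and 12 at equal levels, and the median was -0.27. At an unadjusted p under 0.05, edgeR again found 0 higher and 30 lower, and DESeq2 called 0 higher and 25 lower. With 1 library left out, the count of lower genes ran from 19 to 25 and that of equal genes from 11 to 15. Both states were above EV vehicle cells, by a median of 0.39 in HDAC1 cells and 0.63 in TGFB1 cells. Cdc6, which loads the replicative helicase, had 64.01, 56.9 and 61.9 CPM in HDAC1 cells, against 85.6, 82.8 and 94.3 CPM in TGFB1 cells and 40.8, 40.02 and 43.4 CPM in EV vehicle cells. Cdc6 had a log2 fold change of -0.52 ± 0.07 (SE, adjusted p = 2.33e-06). The 3 groups of Cdc6 were fully apart. Pold2, a subunit of DNA polymerase delta, had 37.8, 35.4 and 36.6 CPM in HDAC1 cells, against 57.4, 52.3 and 63.01 CPM in TGFB1 cells and 26.3, 24.1 and 30.1 CPM in EV vehicle cells. Pold2 differed by -0.65 ± 0.08 (SE) on the log2 scale (adjusted p = 2.41e-06). The helicase subunit Mcm3 had 155, 146 and 152 CPM in HDAC1 cells, against 199, 187 and 213 CPM in TGFB1 cells and 115, 106 and 123 CPM in EV vehicle cells. Mcm3 had a log2 fold change of -0.40 ± 0.06 (SE, adjusted p = 3.09e-05). Its partner Mcm4 was at an equal level, with 191, 161 and 176 CPM in HDAC1 cells, against 182, 185 and 177 CPM in TGFB1 cells and 129, 125 and 131 CPM in EV vehicle cells (95% interval -0.18 to 0.09). Mcm6, another partner, was also at an equal level, with 361, 347 and 358 CPM in HDAC1 cells, against 369.6, 375 and 386 CPM in TGFB1 cells and 279.5, 273 and 287 CPM in EV vehicle cells (95% interval -0.20 to 0.03).

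Of 24 E2F factors, cyclins and inhibitors of cyclin-dependent kinases, 8 were lower, 5 higher and 8 at equal levels. The shares of all genes were 21.5%, 19.7% and 26.2%. Myc had 59.01, 47.9 and 59.3 CPM in HDAC1 cells, against 110.2, 109 and 118 CPM in TGFB1 cells and 45.7, 40.4 and 47.6 CPM in EV vehicle cells. Myc differed by -1.02 ± 0.08 (SE) on the log2 scale (adjusted p = 1.19e-09). Cyclin E1, encoded by Ccne1, had 15.98, 14.2 and 16.1 CPM in HDAC1 cells, against 26.5, 22.9 and 24.9 CPM in TGFB1 cells and 13.9, 14.6 and 13.6 CPM in EV vehicle cells. Ccne1 had a log2 fold change of -0.68 ± 0.08 (SE, adjusted p = 1.25e-06). Its kinase Cdk2 had 28.2, 28.3 and 28.2 CPM in HDAC1 cells, against 42.6, 42.9 and 44.4 CPM in TGFB1 cells and 26.9, 24.2 and 28.4 CPM in EV vehicle cells. Cdk2 differed by -0.62 ± 0.07 (SE) on the log2 scale (adjusted p = 6.9e-07). Cdkn1b, the inhibitor p27, was lower in both states than in EV vehicle cells and lower in TGFB1 cells than in HDAC1 cells, with 118, 129 and 132 CPM in HDAC1 cells, against 102, 111 and 99.5 CPM in TGFB1 cells and 179, 174 and 163 CPM in EV vehicle cells. Cdkn1b had a log2 fold change of 0.28 ± 0.06 (SE, adjusted p = 0.0016). Cdkn1a, the inhibitor p21, was called higher by 0.17 ± 0.06 (SE) on the log2 scale (adjusted p = 0.0404), within the range of equal levels, and it was no longer called without HDAC1 replicate 1 (adjusted p = 0.0685) or without TGFB1 replicate 2 (adjusted p = 0.106). Of 25 p53 targets, 11 were higher and 4 lower (2 lower without TGFB1 replicate 3). Plk2 had 143, 119.7 and 144 CPM in HDAC1 cells, against 45.97, 51.1 and 41.1 CPM in TGFB1 cells and 103, 102 and 102 CPM in EV vehicle cells. Plk2 differed by 1.56 ± 0.09 (SE) on the log2 scale (adjusted p = 2.94e-11). Pmaip1, the death factor Noxa, had 74.3, 69.2 and 76.4 CPM in HDAC1 cells, against 126, 129 and 126 CPM in TGFB1 cells and 72.2, 82.7 and 75.02 CPM in EV vehicle cells. Pmaip1 had a log2 fold change of -0.79 ± 0.06 (SE, adjusted p = 2.22e-09).

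Sterol synthesis was lower in HDAC1 cells in 20 of 29 genes tested, with 5 at equal levels. None was higher in edgeR or DESeq2, and 1 was at an unadjusted p under 0.05. The equal genes were 3 without HDAC1 replicate 2, HDAC1 replicate 3, TGFB1 replicate 2 or TGFB1 replicate 3, and 1 gene was higher without HDAC1 replicate 1 or TGFB1 replicate 3. The median over EV vehicle cells was 0.25 in HDAC1 cells (0.14 without HDAC1 replicate 2) and 0.65 in TGFB1 cells. Against EV vehicle cells, 11 members were called higher in HDAC1 cells and 24 in TGFB1 cells (6.64% and 25.9% of all genes). The 11 were 7 without HDAC1 replicate 2, and 7 to 13 with any 1 library left out. Msmo1, a sterol demethylase, had 203, 247 and 192 CPM in HDAC1 cells, against 433, 439.7 and 486 CPM in TGFB1 cells and 159, 164 and 158 CPM in EV vehicle cells. Msmo1 differed by -1.08 ± 0.08 (SE) on the log2 scale (adjusted p = 1.85e-09). Both states of Msmo1 lay above EV vehicle cells, and TGFB1 cells were well above HDAC1 cells. Idi1, an isomerase of the mevalonate pathway, had the same order, with 53.3, 59.3 and 51.4 CPM in HDAC1 cells, against 82.4, 87.6 and 98.98 CPM in TGFB1 cells and 39.5, 47.2 and 36.8 CPM in EV vehicle cells. Idi1 had a log2 fold change of -0.71 ± 0.10 (SE, adjusted p = 7.11e-06). Scd, the fatty acid desaturase, had 88.05, 123 and 92.5 CPM in HDAC1 cells, against 215, 214 and 212 CPM in TGFB1 cells and 88.5, 103 and 83.1 CPM in EV vehicle cells (log2 fold change -1.08 ± 0.12 (SE), adjusted p = 6.8e-06), and HDAC1 cells overlapped EV vehicle cells. Acat2, which makes the first intermediate of the mevalonate pathway, was at an equal level and raised in both states, with 151, 174 and 144 CPM in HDAC1 cells, against 166, 168 and 177 CPM in TGFB1 cells and 104, 108 and 104 CPM in EV vehicle cells (95% interval -0.30 to 0.04). In the opposite direction of lipid flow, Abca1, which exports cholesterol, had 17.2, 20.02 and 19.5 CPM in HDAC1 cells, against 5.11, 7.66 and 5.36 CPM in TGFB1 cells and 44.6, 43.5 and 38.1 CPM in EV vehicle cells (log2 fold change 1.64 ± 0.13 (SE), adjusted p = 2.78e-09), so it was lower in both states than in EV vehicle cells and lowest in TGFB1 cells. Of 10 sterol efflux genes 4 were higher.

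Glycolysis and hypoxia genes were higher in HDAC1 cells in 16 of 27 tested and lower in 3. Ndrg1, a stress-induced gene of hypoxia, had 589.7, 557 and 561 CPM in HDAC1 cells, against 174, 197 and 174 CPM in TGFB1 cells and 629, 563 and 604 CPM in EV vehicle cells. Ndrg1 differed by 1.65 ± 0.07 (SE) on the log2 scale (adjusted p = 3.53e-14). Car9, a surface carbonic anhydrase, had 150.5, 132 and 147 CPM in HDAC1 cells, against 72.2, 68.6 and 75.8 CPM in TGFB1 cells and 141, 142 and 136 CPM in EV vehicle cells. Car9 had a log2 fold change of 0.99 ± 0.06 (SE, adjusted p = 7.69e-11). HDAC1 and EV vehicle libraries overlapped for Ndrg1 and Car9, and TGFB1 cells were below both. The glucose transporter Slc2a1 was at an equal level, with 175, 188 and 180.3 CPM in HDAC1 cells, against 174, 167 and 172 CPM in TGFB1 cells and 187, 165 and 185 CPM in EV vehicle cells (95% interval -0.05 to 0.21). Pfkfb4, which makes an activator of glycolysis, was lower, with 6.95, 8.45 and 7.25 CPM in HDAC1 cells, against 20.6, 18.6 and 18.3 CPM in TGFB1 cells and 6.58, 6.26 and 7.51 CPM in EV vehicle cells. Pfkfb4 differed by -1.35 ± 0.11 (SE) on the log2 scale (adjusted p = 4.32e-09). Oxidant defence genes were higher in 13 of 31 tested and lower in 5 (3 without HDAC1 replicate 2, HDAC1 replicate 3, TGFB1 replicate 1 or TGFB1 replicate 3). Nqo1, a quinone reductase, had 399, 305 and 351 CPM in HDAC1 cells, against 158, 155 and 164 CPM in TGFB1 cells and 273, 268 and 265 CPM in EV vehicle cells. Nqo1 had a log2 fold change of 1.15 ± 0.08 (SE, adjusted p = 3.15e-10). Cat, catalase, had 128, 116 and 113 CPM in HDAC1 cells, against 54.5, 56.4 and 45.5 CPM in TGFB1 cells and 127, 133 and 118 CPM in EV vehicle cells. Cat differed by 1.19 ± 0.08 (SE) on the log2 scale (adjusted p = 1.8e-10). Gclc, the first enzyme of glutathione synthesis, was lower, with 71.4, 69.1 and 71.03 CPM in HDAC1 cells, against 123, 112 and 115 CPM in TGFB1 cells and 70.8, 68.5 and 67.7 CPM in EV vehicle cells. Gclc had a log2 fold change of -0.73 ± 0.06 (SE, adjusted p = 2.12e-09). Thioredoxin, encoded by Txn1, was at an equal level (95% interval -0.18 to 0.16).

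Amino acid genes that feed collagen and nucleotides were lower in HDAC1 cells in 14 of 21 tested. Of these genes of serine, glycine and proline synthesis, 2 were higher and 7 at equal levels, with 2 of the 7 also among the 14 lower. Pycr1, the last step of proline synthesis, had 10.04, 11.5 and 10.7 CPM in HDAC1 cells, against 34.7, 26.7 and 34.6 CPM in TGFB1 cells and 13.9, 11.2 and 12.02 CPM in EV vehicle cells. Pycr1 differed by -1.58 ± 0.12 (SE) on the log2 scale (adjusted p = 1.31e-09). Mthfd2, a mitochondrial folate enzyme, had 120.5, 115 and 123 CPM in HDAC1 cells, against 187, 172 and 189 CPM in TGFB1 cells and 116, 106 and 112 CPM in EV vehicle cells. Mthfd2 had a log2 fold change of -0.61 ± 0.06 (SE, adjusted p = 5.28e-08). For both genes the HDAC1 libraries were near the EV vehicle libraries and TGFB1 cells were above. Secretory pathway genes were lower in 15 of 30 tested and higher in 5. The translocon subunit Sec61a1 had 329, 366 and 358 CPM in HDAC1 cells, against 557, 521 and 563 CPM in TGFB1 cells and 395, 382 and 385 CPM in EV vehicle cells. Sec61a1 differed by -0.64 ± 0.06 (SE) on the log2 scale (adjusted p = 3.92e-08). The chaperone Hspa5 had 845, 892 and 858 CPM in HDAC1 cells, against 1261, 1237 and 1375 CPM in TGFB1 cells and 966, 1030 and 887 CPM in EV vehicle cells. Hspa5 had a log2 fold change of -0.58 ± 0.07 (SE, adjusted p = 6.56e-07). Ero1a, an oxidase of protein folding, was higher by 0.59 ± 0.06 (SE) on the log2 scale (adjusted p = 8.75e-08), and the stress factor Atf4 was at an equal level (95% interval -0.23 to 0.08).

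Respiratory chain genes of the nucleus were the list with the largest share at equal levels, 32 of 38, with 2 lower and a median of -0.01. edgeR and DESeq2 called 0 higher, and 0 were higher at an unadjusted p under 0.05. Without TGFB1 replicate 3, 8 were higher and 1 lower. At an adjusted p under 0.05 the 2 lower were Cycs, cytochrome c, with 198, 181 and 181 CPM in HDAC1 cells, against 220.4, 225 and 256 CPM in TGFB1 cells and 152, 153 and 164 CPM in EV vehicle cells (log2 fold change -0.32 ± 0.07 (SE), adjusted p = 0.000426), and Uqcrc1, a subunit of complex III. Its partner Uqcrc2 was at an equal level, with 101, 98.3 and 90.6 CPM in HDAC1 cells, against 97.00, 97.7 and 94.5 CPM in TGFB1 cells and 97.1, 92.2 and 91.1 CPM in EV vehicle cells (95% interval -0.13 to 0.13), and the 3 groups overlapped. Lysosome and autophagy genes held 13 of 30 at equal levels, among them the autophagy genes Becn1 (95% interval -0.05 to 0.19) and Atg5 (95% interval -0.11 to 0.20). Of this list, 16 genes were called higher, 2 of them within the range of equal levels, and 3 lower. Ctsd, cathepsin D, had 1761, 1639.9 and 1596 CPM in HDAC1 cells, against 990.1, 1016 and 1038 CPM in TGFB1 cells and 1927, 1832 and 1842 CPM in EV vehicle cells. Ctsd differed by 0.72 ± 0.06 (SE) on the log2 scale (adjusted p = 1.09e-08). Ribosomal protein genes (25 of 47 at equal levels, 10 lower) turned on single libraries. Their lower genes were 2 without HDAC1 replicate 2, 1 without HDAC1 replicate 3 and 0 without TGFB1 replicate 3, and their equal genes were 12 without TGFB1 replicate 1 or TGFB1 replicate 2 and 43 without TGFB1 replicate 3. Mitochondrially encoded genes (3 of 13 higher, 3 equal) were likewise unstable, with 8 higher without HDAC1 replicate 2, 6 higher without EV vehicle replicate 2, 8 equal without HDAC1 replicate 1, and 0 equal without HDAC1 replicate 2, HDAC1 replicate 3, TGFB1 replicate 1 or TGFB1 replicate 2.

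Genes at equal levels away from the EV vehicle level were named by a rule on both arms, at a mean log2 CPM of at least 2. Above it, the 8 highest were Mns1, Eme1, Pttg1, Parpbp, Hmmr, Cdc20, Immp1l and Cdkn3. Pttg1, securin, had 35.7, 28.98 and 32.1 CPM in HDAC1 cells, against 33.1, 31.9 and 37.2 CPM in TGFB1 cells and 18.7, 18.2 and 20.7 CPM in EV vehicle cells (95% interval -0.25 to 0.10). Hmmr, a hyaluronan receptor of the spindle, had 94.5, 74.3 and 84.3 CPM in HDAC1 cells, against 81.8, 92.5 and 82.9 CPM in TGFB1 cells and 49.6, 51.7 and 53.3 CPM in EV vehicle cells (95% interval -0.19 to 0.15). Below it, the 8 lowest were Lbp, Ccn5, Oas2, Sorcs2, Fcgrt, Pold4, Cadm1 and Dkk3. Ccn5, a matricellular protein of the same family as Ccn2, had 32.02, 44.7 and 34.2 CPM in HDAC1 cells, against 33.4, 35.1 and 37.5 CPM in TGFB1 cells and 89.6, 92.8 and 75.4 CPM in EV vehicle cells (95% interval -0.17 to 0.29). Ccn2 itself was above EV vehicle cells in TGFB1 cells and below them in HDAC1 cells. Fcgrt, the neonatal Fc receptor, had 71.9, 83.6 and 67.7 CPM in HDAC1 cells, against 70.3, 63.2 and 84.8 CPM in TGFB1 cells and 109.8, 107 and 99.9 CPM in EV vehicle cells (95% interval -0.16 to 0.22).

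Among 18 histone deacetylases and sirtuins, 5 were higher and 3 lower, where Hdac1 may include plasmid reads. Of all genes, 19.7% were higher and 21.5% lower. The called share of this list (44.4%) was near that of all genes (41.2%). Hdac2, the paralog that shares complexes with HDAC1, was lower in HDAC1 cells, with 92.5, 85.3 and 88.3 CPM in HDAC1 cells, against 131, 127 and 138 CPM in TGFB1 cells and 80.9, 87.3 and 81.1 CPM in EV vehicle cells. Hdac2 had a log2 fold change of -0.57 ± 0.06 (SE, adjusted p = 2.23e-07). HDAC1 and EV vehicle libraries lay close together for Hdac2, and TGFB1 cells were above. Hdac3 was higher by 0.32 ± 0.06 (SE) on the log2 scale (adjusted p = 0.000423). Of 36 subunits of HDAC1 complexes, 17 were at equal levels, 12 lower and 4 higher, against 26.2%, 21.5% and 19.7% of all genes. The NuRD subunits Chd3, Mta1 and Mta2 and the demethylase Kdm1a of CoREST were lower, Kdm1a with 60.99, 62.4 and 62.2 CPM in HDAC1 cells, against 94.4, 89.9 and 87.9 CPM in TGFB1 cells and 63.00, 58.1 and 59.8 CPM in EV vehicle cells. Kdm1a differed by -0.55 ± 0.06 (SE) on the log2 scale (adjusted p = 1.83e-07). Mbd2 (95% interval -0.11 to 0.16) and the SIN3 subunits Arid4a (95% interval -0.17 to 0.15) and Arid4b (95% interval -0.14 to 0.15) were at equal levels. Of 24 acetyltransferases and bromodomain proteins, 7 were lower and 4 higher (7 higher without TGFB1 replicate 2), and Kat2a (95% interval -0.18 to 0.10) was at an equal level. The called share of these 24 genes (45.8%) was also near that of all genes.

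Transcription factors of the mesenchymal state split, with 9 of 17 tested lower, 4 higher and 3 at equal levels. Sox4 had 73.3, 69.8 and 71.8 CPM in HDAC1 cells, against 206, 191 and 214 CPM in TGFB1 cells and 112, 107 and 90.6 CPM in EV vehicle cells. Sox4 had a log2 fold change of -1.51 ± 0.08 (SE, adjusted p = 2.38e-12). Runx1 had 36.1, 33.98 and 38.8 CPM in HDAC1 cells, against 81.4, 74.4 and 76.7 CPM in TGFB1 cells and 34.02, 29.2 and 34.1 CPM in EV vehicle cells. Runx1 differed by -1.09 ± 0.07 (SE) on the log2 scale (adjusted p = 1.61e-10). Sox4 was below the EV vehicle level in HDAC1 cells, and Runx1 was near it. Zeb1 (95% interval -0.23 to 0.03), Zeb2 (95% interval -0.05 to 0.25) and Twist2 (95% interval -0.15 to 0.17) were at equal levels. Both cyclooxygenases differed, in opposite directions. Ptgs1, the constitutive cyclooxygenase, had 23.5, 31.7 and 26.3 CPM in HDAC1 cells, against 5.15, 4.24 and 8.34 CPM in TGFB1 cells and 32.9, 34.2 and 29.98 CPM in EV vehicle cells. Ptgs1 had a log2 fold change of 2.21 ± 0.17 (SE, adjusted p = 2.18e-08). Ptgs2, the inducible one, had 26.4, 15.96 and 21.5 CPM in HDAC1 cells, against 41.5, 40.2 and 41.9 CPM in TGFB1 cells and 18.6, 15.3 and 14.95 CPM in EV vehicle cells. Ptgs2 differed by -0.94 ± 0.16 (SE) on the log2 scale (adjusted p = 0.000445). TGFB1 cells were lowest for Ptgs1 and highest for Ptgs2.

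Markers of other cell types were also counted. Of 20 heart genes tested, edgeR and DESeq2 called 0, 0 passed an unadjusted p under 0.05, and 0 were at equal levels. Their summed level was 239.5 to 462 CPM in HDAC1 cells, 433 to 550.1 CPM in TGFB1 cells and 71.2 to 409 CPM in EV vehicle cells. Of 19 neuronal and glial genes, 1 was higher, and without EV vehicle replicate 1, 6 were lower. The summed level of endothelial markers was 135 to 145 CPM in HDAC1 cells, 147 to 152 CPM in TGFB1 cells and 139 to 158 CPM in EV vehicle cells. Most of that sum was Eng, the coreceptor listed above with the TGF-beta receptors. The 4 kidney tubule markers tested summed to 44.8 to 53.2 CPM in HDAC1 cells, 13.3 to 15.3 CPM in TGFB1 cells and 32.1 to 39.1 CPM in EV vehicle cells, most of it Aqp1. The 3 macrophage and leukocyte markers tested summed to 92.8 to 111 CPM in HDAC1 cells, 188 to 219 CPM in TGFB1 cells and 151 to 154 CPM in EV vehicle cells. Most of this was Cd14, a coreceptor for bacterial lipopolysaccharide, which was lower in HDAC1 cells, at -1.08 ± 0.08 (SE) on the log2 scale (adjusted p = 3.69e-10). Cd68, the lysosomal marker of macrophages, was higher by 0.75 ± 0.19 (adjusted p = 0.00276). For all these markers, their part in the other results was not tested. Of the 4 epithelial markers tested, 2 were higher, 1 lower and 1 at an equal level. Together the 4 summed to 1439 to 1692 CPM in HDAC1 cells, 1361.6 to 1537.5 CPM in TGFB1 cells and 1148.5 to 1250.8 CPM in EV vehicle cells. Nearly all of it was the keratin Krt8, with 136506, 93391 and 83867 counts in these groups, so this keratin was abundant in all of them. The lower was Cldn4, at -2.68 on the log2 scale, with 47 counts in HDAC1, 224 in TGFB1 and 22 in EV vehicle libraries. Esrp2 was higher, with 111, 35 and 95 counts in the same order, but was not called without TGFB1 replicate 1. Krt8 was at an equal level (95% interval -0.04 to 0.26) and Krt19 was low and higher in HDAC1 cells, with 4.17, 3.50 and 2.81 CPM in HDAC1 cells, against 0.497, 0.514 and 0.645 CPM in TGFB1 cells and 3.67, 3.71 and 3.22 CPM in EV vehicle cells. Krt19 had a log2 fold change of 2.66 ± 0.26 (SE, adjusted p = 4.99e-08). Pdgfra, a receptor of fibroblasts, was higher, with 163, 201 and 192 CPM in HDAC1 cells, against 117, 114 and 102 CPM in TGFB1 cells and 231, 231 and 207 CPM in EV vehicle cells (log2 fold change 0.74 ± 0.08 (SE), adjusted p = 1.22e-07), and Vim, vimentin, was lower, with 3345, 3041 and 3028 CPM in HDAC1 cells, against 4188, 4057 and 4646 CPM in TGFB1 cells and 2743, 2651 and 2679.6 CPM in EV vehicle cells. Vim differed by -0.45 ± 0.07 (SE) on the log2 scale (adjusted p = 1.21e-05).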

How the data were processed

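RNA of 12 NRK-49F libraries was measured, and 9 of them are described here. Raw counts by rat Ensembl gene and a normalized signal were deposited by the authors. Trim Galore 0.6.7, Subread 2.0.1 and DESeq2 1.44 stand in the submitters' processing notes, which also name the mouse build mm10 although the gene identifiers are of rat. Promoter coordinates are those of RefSeq. In each library the deposited normalized signal equals the counts divided by 1 constant, and that table served only for gene symbols (1909 of the tested genes had none and 155 shared one).

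Counts were fitted with edgeR 4.0.16 under R 4.3.3 (TMM scaling, filterByExpr, robust quasi-likelihood, 1 mean per group over 12 libraries, 8 residual degrees of freedom). CPM values are scaled by TMM, except in counts of genes that stand apart in 1 library. SE is the unshrunken log2 fold change over the square root of F. The members and lists were chosen with earlier results of these data known. Genes were named by rule: fibrosis and cell cycle readouts, the 15 largest differences each way (mean log2 CPM of at least 2), up to 5 members of each list by adjusted p, up to 3 at the closest equal levels, and the most extreme genes equal in both states or opposite to each other. Mmp3, Col11a2, Mylk and Lmod1 were named after their values were seen. Of 2 identifiers with the same symbol, the one with more counts entered a list. The median 95% interval reached 0.20 either way on the log2 scale. The alternatives were DESeq2 1.42.0, its size factors, limma 3.58.1 voom, other filters, a replicate block and single libraries left out. The fit was tested on simulated data with 200 of 14601 genes changed. It recovered 62.7% of 1.5-fold, 79.1% of 2-fold and 95.5% of 4-fold changes. Of the unchanged genes 56.1% reached an equal level, and 0 of the changed genes did. A gene not at an equal level may therefore still be unchanged. HDAC1 cells with TGFB1 were not described here.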

Additional observations from a re-analysis of the deposited data

Results flagged for a closer look

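HDAC1 replicate 1 held transcripts of liver genes that no comparison used, because they were too low in the other libraries to be tested. Alb, serum albumin, was at 28.3 CPM of the library total, Fgb, a fibrinogen chain, at 11.7 CPM and Cps1, the first enzyme of the urea cycle, at 11.7 CPM. In counts, Alb had 1038, Fgb 428 and Cps1 429 in that library, and Alb had at most 2 in any other library. The source was not tested.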

How the results depend on the processing

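The number of genes called, 6011, stayed within 1.5 times of that under DESeq2 size factors (6012, of which 5909 were shared), the DESeq2 test (5948), the table without a filter (5893), a floor of 1 CPM on the mean (5695) and a fit to the 2 groups alone (5482). With a difference of 1.2-fold as the null, 2864 genes were called, 1518 higher and 1346 lower. Equal levels, 3830 by the margin of 0.32 on the log2 scale, were 45 with a margin of 1.1-fold and 8144 with 1.5-fold, so the number at equal levels depends on the margin by construction, and the voom interval gave 3873. Leaving out each HDAC1 or TGFB1 library in turn gave 5202 to 5806 called genes, and leaving out EV vehicle replicate 1 gave 5952. Deviations from the group means had correlations of -0.07, -0.09 and -0.08 between same-numbered HDAC1 and TGFB1 replicates. Between replicates of different numbers they were 0.03 to 0.05. Deviations from a mean of 3 libraries depend on each other, so these values do not settle whether the numbers pair the libraries. The fit with the replicate block called 5699 genes, 5667 of them shared. With DESeq2 size factors the median of all genes was 0.00 in place of -0.01.

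Of 368 named genes, 251 were called, and 0 of these 251 changed direction by any of these settings. For named genes that were not called, changes of direction were not counted. Of the 251 called, 14 lost the call under at least 1 setting, among them Rps13, Rps27a, Rps9, Rpl13a, Tnnt3, Cdh5, Mt-co3, Cdkn1a, Fbn1, Vwf, Esrp2, Hp and Uqcrc1. Genes of low counts are limited by depth, and for 4958 genes the interval was too wide to place them.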
